A study of Mus musculus with 31 samples.

Results

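The 33 genes described here encode proteins that build, mineralise or resorb skeletal tissue, and they were measured in pieces of embryonic mouse nerve and in the tissue cut out with them. They were chosen by symbol, from a list of bone and cartilage genes, and are 33 of the 47729 genes of the deposited count matrix. By role they fell into 12 genes of bone matrix and mineral, 3 bone regulators, 3 resorption enzymes, 7 cartilage collagens and 8 other cartilage matrix or membrane proteins. The list was drawn up by name, with earlier results of these data known.

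Bone of the face forms mostly by direct ossification of mesenchyme. There the transcription factors Runx2 and Sp7 drive cells to become osteoblasts, which secrete collagen, glycoproteins and phosphatase and mineralise the matrix. Cartilage is made by chondrocytes, whose matrix is a mesh of type II, IX and XI collagen filled with aggrecan. The nasal capsule that surrounds the olfactory mucosa is cartilage at these stages, and olfactory axons cross it on their way to the olfactory bulb, while branches of the trigeminal nerve run through facial mesenchyme in which membrane bones form. Both kinds of nerve carry glia of neural crest origin, namely olfactory ensheathing cells (OECs) on the olfactory nerve and Schwann cells on the trigeminal nerve.

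The study cut nerve pieces with a laser from frozen sections of mouse embryos carrying a Sox10:Histone2BVenus BAC transgene, in which nuclei of Sox10-expressing cells fluoresce. All groups carried this reporter and the labels name no mutation or treatment. The pieces were outlined by the fluorescence and hold whatever other cells lie within the outline, and tissue from several sections of an embryo was pooled for a library. At E16.5 there were 4 libraries of olfactory nerve (from the lamina propria of the mucosa), 4 of the outer and 4 of the inner olfactory nerve layer (ONL, on the surface of the bulb) and 3 of trigeminal nerve, from branches beside the olfactory system. Inner and outer ONL pieces were cut by their position. The study reports that they did not separate inner from outer ONL OECs, and that inner pieces included olfactory bulb tissue. The earlier libraries were 7 of E13.5 olfactory nerve, 5 of E13.5 ONL and 4 of E11.5 olfactory nerve.

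Libraries held 3512627 to 36705535 counts, and the 3 trigeminal nerve libraries were sequenced deeper than the other E16.5 libraries. A level is given as CPM (a count relative to the size of its library, after edgeR's TMM scaling), a count of 3 or fewer in every library of a group is called the floor, and means are given ± SD. A log2 fold change is given ± its standard error (SE). A bare number before an adjusted p is a log2 fold change, also beside a bound given as a fold. A difference is called where the adjusted p of edgeR's quasi-likelihood test lay below 0.05. Of the 33 genes, 30 passed the filter on low counts and were tested. Bglap and Bglap2, near-identical copies of the osteocalcin gene whose reads may be split between them, never exceeded 14 counts in a library, and Mepe never exceeded 3. In these bulk pieces, fewer cells of a type and less RNA per cell cannot be told apart.

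For 10 of the 16 early libraries, the label and the group means published with the study disagreed. Taken as ratios to E16.5 olfactory nerve, the published means matched the means of libraries regrouped as follows to within 2% in 100% of genes compared, against 2.86% to 32.9% of genes when libraries were grouped by label. E13.5 ONL then comprised the libraries labelled E11.5 olfactory nerve 1 to 4 and E13.5 olfactory nerve 1. E13.5 olfactory nerve comprised those labelled E13.5 olfactory nerve 2 to 7 and E13.5 ONL 1, and E11.5 olfactory nerve those labelled E13.5 ONL 2 to 5. With these groups, the summed level of 5 genes of olfactory bulb neurons (Eomes, Tbr1, Tbx21, Reln and Neurod2) was 553.5 to 693.8 CPM in E13.5 ONL libraries, against 39.6 to 66.0 CPM in E13.5 and 24.7 to 45.8 CPM in E11.5 olfactory nerve. Stage comparisons below use this grouping, called regrouped, and give each test they print by label as well. For E16.5 outer ONL, inner ONL and trigeminal nerve, ratios by label to E16.5 olfactory nerve matched the published ones in 100% of genes compared.

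At E16.5 the bone members called between the nerves were mostly higher in trigeminal nerve and the cartilage members called were lower there. Of 16 tested osteoblast genes that are not members, 1 was higher and 3 were lower in trigeminal nerve, with a median log2 fold change of -0.33. Against olfactory nerve, 9 of the 30 tested members were higher in trigeminal nerve and 13 were lower, where 11.7% and 15.2% of all 17800 genes tested were called in these directions. With each library left out in turn the counts were 8 to 10 and 10 to 13, and in a fit of all 31 libraries grouped by label 5 were higher. The 9 higher members were Ibsp, Tnfsf11, Ifitm5, Phex, Alpl, Sp7, Sparc, Acp5 and Postn. Of the 15 cartilage members, 10 were lower in trigeminal nerve and 0 were higher at an adjusted p under 0.05. The median log2 fold change was 1.25 over the 9 tested bone matrix genes, -1.40 over the 7 cartilage collagens and -3.58 over the 8 other cartilage genes, against -0.026 over all genes. In the fits of all 31 libraries, calls lost with the early libraries grouped either way were those of Spp1 (0.0988 and 0.223), Omd (0.0513 and 0.115), Postn (0.0689 and 0.189), Acp5 (0.222 and 0.316) and Matn4 (0.0515 and 0.0703) (edgeR adjusted p regrouped and by label), and by label also those of Phex (0.069), Sp7 (0.08) and Ctsk (0.447).

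**Figure D1:**
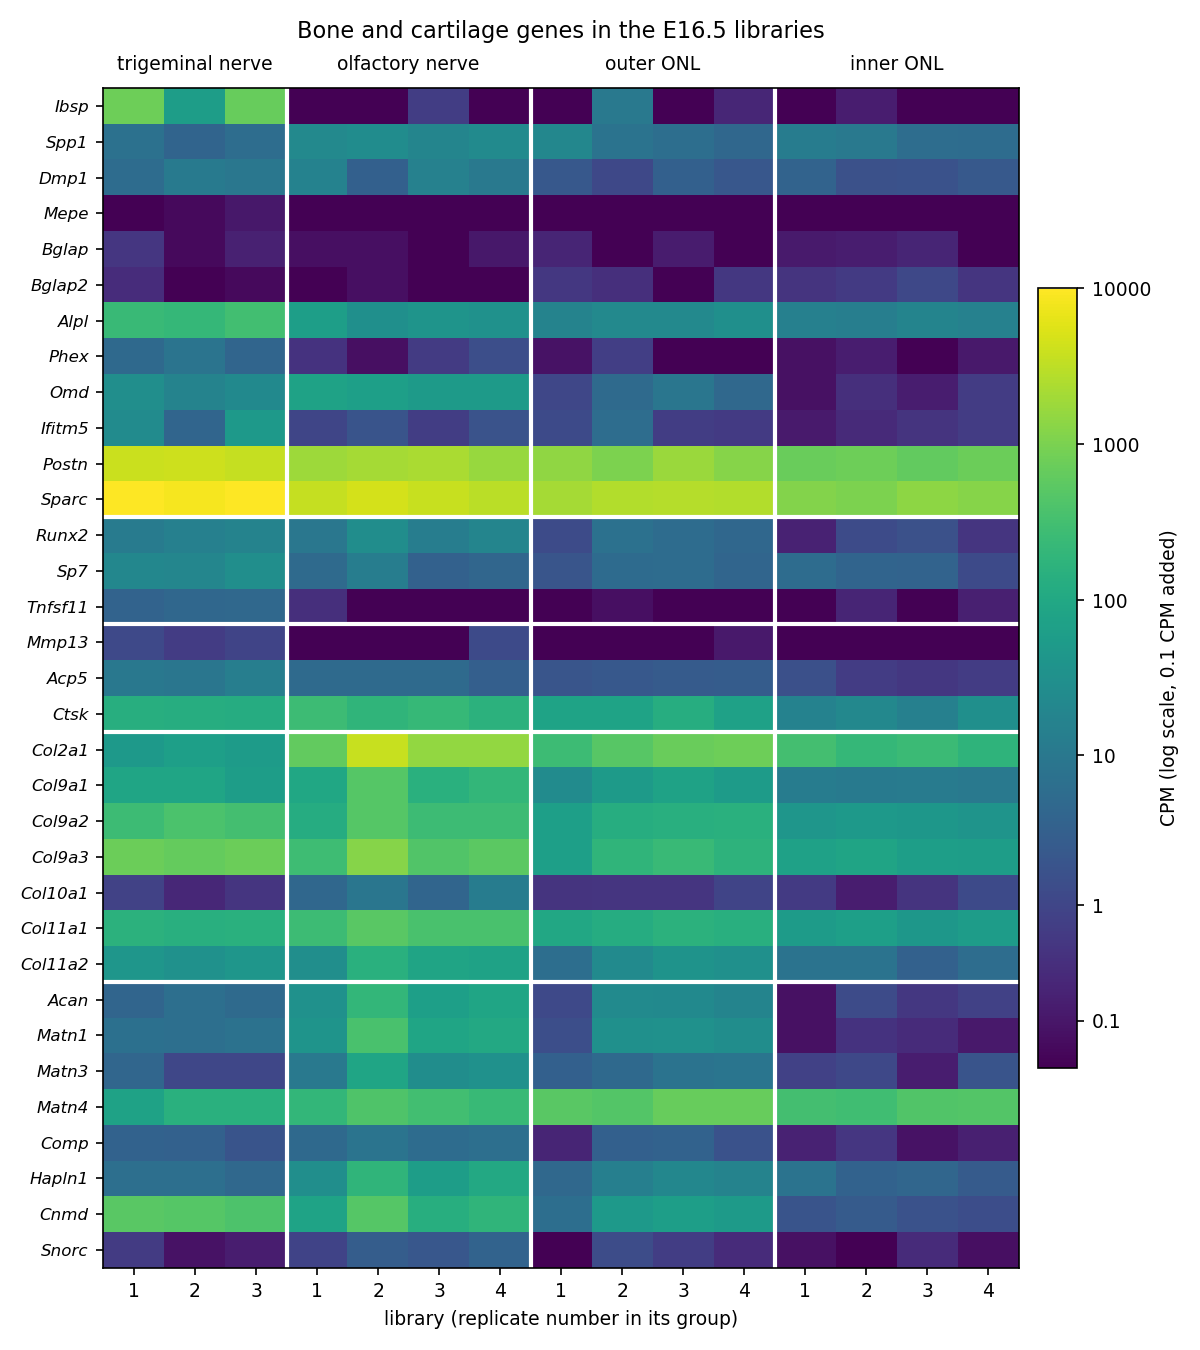
Level of each of the 33 members (rows, grouped by role) in each of the 15 E16.5 libraries (columns, grouped by dissected region), as colour on a log scale of CPM with 0.1 added. Ibsp is bright in the 3 trigeminal nerve libraries and dark in nearly all others, while Matn1, Acan and Hapln1 are brightest in the 4 olfactory nerve libraries. Col2a1 is brightest in olfactory nerve too, though its lowest library there lies below some outer ONL libraries.

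**Figure D2:**
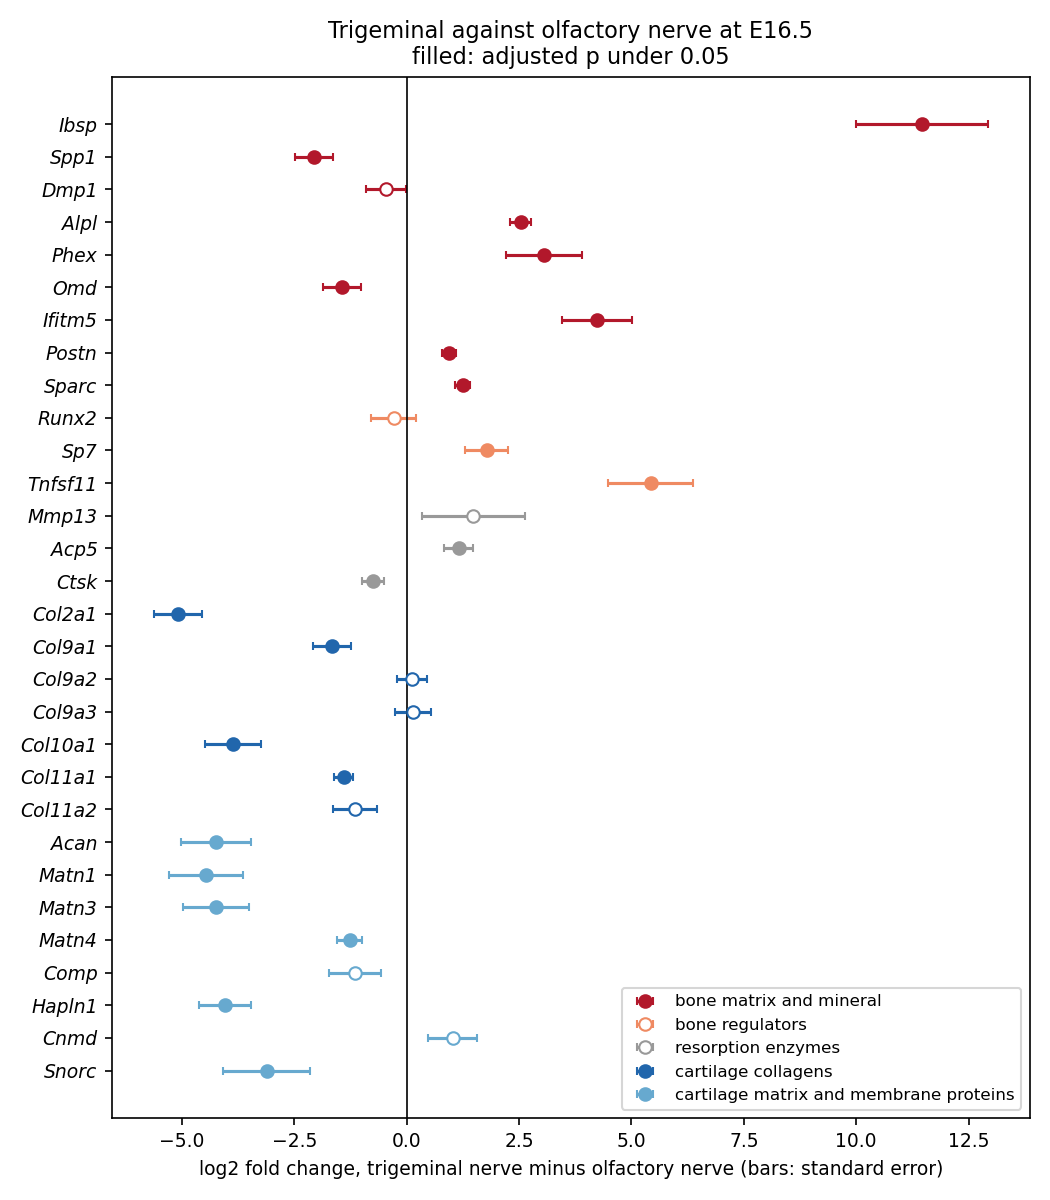
Log2 fold change between E16.5 trigeminal and olfactory nerve (x axis, positive where trigeminal nerve is higher) for the 30 tested members (y axis), with bars for 1 SE, filled points for an adjusted p under 0.05 and colour for the role. Ibsp lies farthest to the right at 11.46 and Col2a1 farthest to the left at -5.09.

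Ibsp (chr5:104299171-104311469, plus strand) encodes bone sialoprotein, a glycoprotein of mineralising matrix, and showed the widest difference of the set. It measured 794, 61.1 and 686 CPM in the 3 trigeminal nerve libraries, from 22039, 1696 and 18688 counts. Its level was 0, 0, 0.715 and 0 CPM in olfactory nerve and, in ONL, 0, 10.4, 0 and 0.244 CPM in its outer and 0, 0.150, 0 and 0 CPM in its inner layer. The lowest trigeminal nerve library was thus above every other E16.5 library, although it held far less than the other 2 trigeminal nerve libraries. Ibsp was higher in trigeminal nerve than in olfactory nerve (log2 fold change 11.46 ± 1.47, edgeR adjusted p 1.76e-05) and than in outer ONL (7.55 ± 1.14, adjusted p 6.69e-05). The size of both differences turned on single libraries with few counts, and was 16.16, adjusted p 0.000145, without olfactory nerve 3 and 12.37, adjusted p 9.12e-07, without outer ONL 2. Between the 2 olfactory regions the fitted value was not called (-3.91 ± 1.61, adjusted p 0.0861), and it changed sign without outer ONL 2 (0.92, adjusted p 0.819), passed the threshold without outer ONL 1 (-4.34, adjusted p 0.0478) or 3 (-4.32, adjusted p 0.0462) and with no filter (-3.94, adjusted p 0.0204), and measured -8.61, adjusted p 0.0733, without olfactory nerve 3. Between inner and outer ONL, with every inner library at the floor, the fitted log2 value was -6.01 ± 2.18, adjusted p 0.0682, and passed the threshold without outer ONL 1 (-6.42, adjusted p 0.0367), 3 (-6.42, adjusted p 0.0427) or 4 (-6.40, adjusted p 0.0486) and with no filter (-6.02, adjusted p 0.0116), but measured -1.19, adjusted p 0.875, without outer ONL 2 and -8.61, adjusted p 0.15, without inner ONL 2.

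Ibsp lies on the plus strand of chromosome 5 within 238 kb of 3 other members, Dmp1, Mepe and Spp1, which encode acidic phosphoproteins of the same family. Of these 4 neighbours, Ibsp was higher and Spp1 lower in trigeminal than in olfactory nerve. Spp1 (osteopontin, also made by macrophages and many other cells) measured 7.21, 3.97 and 6.03 CPM in trigeminal nerve, against 22.1, 26.5, 18.4 and 24.4 CPM in olfactory nerve and, in ONL, 20.2, 7.91, 6.26 and 4.64 CPM in its outer and 12.4, 10.2, 6.04 and 5.66 CPM in its inner layer. All 3 trigeminal nerve libraries lay below all 4 olfactory nerve libraries, and Spp1 was lower in trigeminal nerve (log2 fold change -2.05 ± 0.42, edgeR adjusted p 0.0014), a call lost in the fits of all 31 libraries (regrouped -1.99, adjusted p 0.0988, and by label -1.99, adjusted p 0.223). Spp1 was higher in olfactory nerve than in outer ONL (1.33 ± 0.37, adjusted p 0.0135), although these groups overlapped. Dmp1, a matrix protein of osteocytes, measured 8.65 ± 2.51 CPM in trigeminal and 11.4 ± 6.01 CPM in olfactory nerve, and was higher in both than in outer ONL, at 2.21 ± 0.877 CPM (log2 fold change 1.99 ± 0.46, edgeR adjusted p 0.00308 for trigeminal nerve, and 2.45 ± 0.45, adjusted p 0.000591 for olfactory nerve). Mepe, an osteocyte protein, was at the floor in every group.

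The 250 bases before the transcription start are printed below for these 4 neighbours and for the other members that differed by 16-fold or more between the nerves, so that genes with opposite patterns can be set side by side. Sequences are those of RefSeq on GRCm38.p6, 5′ to 3′ on the strand of the gene, and 27 of the 33 members had one. Capitals mark a RUNX core, ACCACA or TGTGGT on the other strand, or a TATA box, TATAAA or TTTATA. Tnfsf11 and Ifitm5 were higher in trigeminal nerve, and Matn1, Acan, Matn3 and Hapln1 lower. Col2a1 also differed by more than 16-fold.
Ibsp (chr5:104299037-104299286, plus strand): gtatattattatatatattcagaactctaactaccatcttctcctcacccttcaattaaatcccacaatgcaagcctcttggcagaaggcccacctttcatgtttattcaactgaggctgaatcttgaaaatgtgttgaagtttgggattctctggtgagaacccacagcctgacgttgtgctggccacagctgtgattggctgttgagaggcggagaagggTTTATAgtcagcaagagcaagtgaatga
Dmp1 (chr5:104202367-104202616, plus strand): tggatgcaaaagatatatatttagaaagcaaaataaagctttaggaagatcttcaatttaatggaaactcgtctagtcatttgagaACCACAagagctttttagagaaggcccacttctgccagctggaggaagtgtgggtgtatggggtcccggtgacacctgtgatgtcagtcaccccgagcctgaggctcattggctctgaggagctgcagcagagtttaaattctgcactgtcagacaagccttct
Mepe (chr5:104325079-104325328, plus strand): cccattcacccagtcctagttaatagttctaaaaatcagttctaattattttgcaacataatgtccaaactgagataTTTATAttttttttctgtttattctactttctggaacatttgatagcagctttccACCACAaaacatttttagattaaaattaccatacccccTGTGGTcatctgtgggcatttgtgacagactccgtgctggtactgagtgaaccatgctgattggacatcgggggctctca
Spp1 (chr5:104434861-104435110, plus strand): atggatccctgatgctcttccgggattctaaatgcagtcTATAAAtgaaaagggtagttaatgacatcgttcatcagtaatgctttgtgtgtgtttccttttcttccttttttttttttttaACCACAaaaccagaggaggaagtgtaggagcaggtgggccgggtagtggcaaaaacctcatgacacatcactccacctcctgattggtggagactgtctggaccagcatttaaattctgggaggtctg
Tnfsf11 (chr14:78308044-78308293, minus strand): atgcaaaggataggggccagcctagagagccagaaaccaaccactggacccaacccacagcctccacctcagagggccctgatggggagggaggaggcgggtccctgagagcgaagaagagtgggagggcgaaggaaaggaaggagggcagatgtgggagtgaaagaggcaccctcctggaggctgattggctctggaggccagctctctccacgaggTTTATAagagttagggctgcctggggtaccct
Ifitm5 (chr7:140950244-140950493, minus strand): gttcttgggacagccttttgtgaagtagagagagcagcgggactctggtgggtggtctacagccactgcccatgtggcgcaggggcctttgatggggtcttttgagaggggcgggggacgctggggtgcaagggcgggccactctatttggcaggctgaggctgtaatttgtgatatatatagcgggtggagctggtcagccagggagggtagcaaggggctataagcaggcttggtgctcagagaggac
Matn1 (chr4:130944135-130944384, plus strand): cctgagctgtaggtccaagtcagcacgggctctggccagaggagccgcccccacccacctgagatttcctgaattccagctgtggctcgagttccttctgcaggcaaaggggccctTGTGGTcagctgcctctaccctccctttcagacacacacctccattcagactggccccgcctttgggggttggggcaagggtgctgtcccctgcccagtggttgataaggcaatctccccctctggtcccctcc
Acan (chr7:79052976-79053225, plus strand): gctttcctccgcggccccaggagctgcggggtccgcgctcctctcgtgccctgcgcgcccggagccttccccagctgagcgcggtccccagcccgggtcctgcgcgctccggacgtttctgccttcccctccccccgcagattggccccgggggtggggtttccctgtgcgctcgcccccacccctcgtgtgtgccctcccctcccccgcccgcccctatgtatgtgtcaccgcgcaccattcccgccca
Matn3 (chr12:8947679-8947928, plus strand): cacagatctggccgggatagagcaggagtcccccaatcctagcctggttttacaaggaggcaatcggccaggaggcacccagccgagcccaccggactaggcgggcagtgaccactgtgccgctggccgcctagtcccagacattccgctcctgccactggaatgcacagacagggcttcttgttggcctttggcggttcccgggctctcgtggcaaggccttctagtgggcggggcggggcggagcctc
Hapln1 (chr13:89540386-89540635, plus strand): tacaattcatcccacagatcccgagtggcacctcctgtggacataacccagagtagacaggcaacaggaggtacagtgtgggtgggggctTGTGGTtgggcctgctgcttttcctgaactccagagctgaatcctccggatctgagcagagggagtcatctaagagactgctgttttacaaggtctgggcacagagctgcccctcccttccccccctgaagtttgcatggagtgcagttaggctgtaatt

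A TATA box began 28 bases before the start of Ibsp and 32 bases before that of Tnfsf11. The windows of Spp1 and Mepe held one farther off, at 211 and 173 bases. The RUNX core, the letters read by Runx factors, was present in the windows of Spp1, Dmp1, Mepe, Matn1 and Hapln1 and absent from those of Ibsp, Tnfsf11, Ifitm5, Acan and Matn3. Over both strands, the RUNX core was found in 8 of the 27 member windows (29.6%) and in 14.2% of 27025 windows of all genes, and the TATA box in 9 member windows (33.3%) and in 13.0% of all. The 2 motifs did not overlap in any member window. These matches describe letters only, and were present on both sides of the difference between the nerves.

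The other bone matrix genes were mostly highest in trigeminal nerve. Alpl, the alkaline phosphatase that frees phosphate for mineral, measured 238, 217 and 299.8 CPM in trigeminal nerve, against 62.6, 31, 38.3 and 34.3 CPM in olfactory nerve and, in ONL, 17.2, 22.5, 22.5 and 30.6 CPM in its outer and 14.9, 13.7, 17.5 and 15.7 CPM in its inner layer. The trigeminal nerve libraries stood clear of all others, and the olfactory nerve libraries stood just above those of outer ONL. Alpl was 5.81-fold higher in trigeminal than in olfactory nerve (log2 fold change 2.54 ± 0.23, edgeR adjusted p 5.17e-07), 10.9-fold higher than in outer ONL (3.45 ± 0.24, adjusted p 1.4e-08), and 1.88-fold higher in olfactory nerve than in outer ONL (0.91 ± 0.22, adjusted p 0.00439). Ifitm5, a membrane protein of osteoblasts, measured 25.4, 4.25 and 49.7 CPM in trigeminal nerve, against 0.989, 1.85, 0.715 and 1.77 CPM in olfactory nerve and, in ONL, 1.23, 6.03, 0.711 and 0.610 CPM in its outer and 0.135, 0.301, 0.471 and 0.663 CPM in its inner layer. As with Ibsp, trigeminal nerve 2 was the lowest of its group and outer ONL 2 the highest of its own, and these 2 libraries overlapped. Ifitm5 was higher in trigeminal than in olfactory nerve (log2 fold change 4.23 ± 0.78, edgeR adjusted p 0.000587, and 3.44, adjusted p 0.00491, without trigeminal nerve 3) and than in outer ONL (3.61 ± 0.76, adjusted p 0.00139, with 4.998, adjusted p 7.18e-05, without outer ONL 2 and 2.77, adjusted p 0.0145, without trigeminal nerve 3, and lost with the replicate number as a block at 3.37, adjusted p 0.105). Its difference between inner and outer ONL was not called (-2.40 ± 0.86, adjusted p 0.0631), but passed the threshold without outer ONL 3 (-2.69, adjusted p 0.0459) or 4 (-2.71, adjusted p 0.0411), by DESeq2 (-2.43, adjusted p 0.0344), with no filter (-2.42, adjusted p 0.0189), in the fit of all 31 libraries regrouped (-2.43, adjusted p 0.0265) and with the 2 groups alone (-2.43, adjusted p 0.0497), and was -1.01, adjusted p 0.475, without outer ONL 2.

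Phex, an endopeptidase of osteoblasts and osteocytes, was low throughout, at 5.85 ± 2.28 CPM in trigeminal nerve, against 0.659 ± 0.607 CPM in olfactory nerve and, in ONL, 0.207 ± 0.366 CPM in its outer and 0.0845 ± 0.0660 CPM in its inner layer. It was higher in trigeminal than in olfactory nerve (log2 fold change 3.05 ± 0.84, edgeR adjusted p 0.0118, and 3.90, adjusted p 0.00579, without olfactory nerve 4) and than in outer ONL (4.73 ± 0.95, adjusted p 0.000916, and 7.62, adjusted p 6.4e-05, without outer ONL 2). Omd, osteomodulin, a small proteoglycan of bone matrix, went the other way between the nerves. It measured 29.5, 17.4 and 23.6 CPM in trigeminal nerve, against 73.9, 65.8, 52.4 and 53.2 CPM in olfactory nerve and, in ONL, 1.07, 5.27, 8.89 and 4.82 CPM in its outer and 0.0672, 0.376, 0.157 and 0.663 CPM in its inner layer. The order was olfactory nerve, trigeminal nerve, outer ONL and inner ONL, with no overlap between neighbours. Omd was lower in trigeminal than in olfactory nerve (log2 fold change -1.44 ± 0.43, edgeR adjusted p 0.0193), a call that was lost without trigeminal nerve 2 (-1.23, adjusted p 0.0852) or 3 (-1.41, adjusted p 0.0597). It was 12.8-fold higher in olfactory nerve than in outer ONL (3.68 ± 0.44, adjusted p 8.07e-06), 4.71-fold higher in trigeminal nerve than in outer ONL (2.24 ± 0.43, adjusted p 0.000694), and 14.7-fold lower in inner than in outer ONL (-3.88 ± 0.57, adjusted p 0.000215, with -4.60, adjusted p 0.000262, without inner ONL 4).

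Sparc (osteonectin) and Postn (periostin) are matrix proteins of many connective tissues and, per kilobase of exon, were the most abundant members in each E16.5 region. Sparc measured 9923, 8562 and 9719 CPM in trigeminal nerve, against 3668, 4787, 3717 and 3055 CPM in olfactory nerve and, in ONL, 2090.0, 2651, 2743 and 2674 CPM in its outer and 1186, 1033, 1395 and 1244 CPM in its inner layer. The 4 regions formed a series from trigeminal nerve down to inner ONL with no overlap between neighbours. Sparc was higher in trigeminal than in olfactory nerve (log2 fold change 1.25 ± 0.16, edgeR adjusted p 1.92e-05) and than in outer ONL (1.90 ± 0.16, adjusted p 1.29e-07), higher in olfactory nerve than in outer ONL (0.66 ± 0.15, adjusted p 0.00351) and lower in inner than in outer ONL (-1.03 ± 0.15, adjusted p 0.000218). Postn measured 4028, 4046 and 3670.0 CPM in trigeminal nerve, against 1815, 2078, 2277 and 1645 CPM in olfactory nerve and, in ONL, 1480.0, 1025, 1722 and 1204 CPM in its outer and 700.5, 798, 638 and 736 CPM in its inner layer. Its order was the same, though olfactory nerve and outer ONL overlapped. Postn was higher in trigeminal than in olfactory nerve (log2 fold change 0.94 ± 0.16, edgeR adjusted p 0.000275, lost in the fits of all 31 libraries at 1.00, adjusted p 0.0689, regrouped and 1.00, adjusted p 0.189, by label) and than in outer ONL (1.55 ± 0.16, adjusted p 1.2e-06), and lower in inner than in outer ONL (-0.87 ± 0.15, adjusted p 0.000701). Between olfactory nerve and outer ONL the call (0.61 ± 0.15, adjusted p 0.00584) was lost without olfactory nerve 3 (0.47, adjusted p 0.053). Per kilobase of exon, Sparc reached 2482 ± 194 CPM in trigeminal nerve, against 449.9 ± 24.4 CPM for Postn, 248 ± 191 CPM for Ibsp and 62.4 ± 10.7 CPM for Alpl.

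The 3 bone regulators did not share 1 pattern. Sp7 (osterix), the transcription factor of committed osteoblasts, measured 20.7, 19.5 and 29.6 CPM in trigeminal nerve, against 5.13, 13.2, 3.44 and 4.32 CPM in olfactory nerve and, in ONL, 1.99, 5.59, 5.69 and 4.15 CPM in its outer and 5.65, 3.98, 3.77 and 1.21 CPM in its inner layer. Every trigeminal nerve library was above every olfactory library, with olfactory nerve 2 next. Sp7 was higher in trigeminal than in olfactory nerve (log2 fold change 1.78 ± 0.47, edgeR adjusted p 0.00914, and 2.37, adjusted p 0.000802, without olfactory nerve 2) and than in outer ONL (2.42 ± 0.48, adjusted p 0.000875). Tnfsf11 encodes RANKL, the ligand that drives osteoclast formation. It measured 4.43 ± 0.575 CPM in trigeminal nerve and 0.0927 ± 0.185 CPM in olfactory nerve, and was at the floor in outer and inner ONL. It was higher in trigeminal than in olfactory nerve (log2 fold change 5.43 ± 0.95, edgeR adjusted p 0.000329, and 9.29, adjusted p 6.98e-05, without olfactory nerve 1). It was at least 21.8-fold higher than in outer ONL, taking 3 counts in each outer ONL library (adjusted p 7.31e-05, with a log2 fold change of 9.29, adjusted p 0.000493, without outer ONL 2). Between olfactory nerve and outer ONL its fitted value (2.11 ± 1.505, adjusted p 0.351) changed sign without olfactory nerve 1 (-1.74, adjusted p 0.53) and was 3.85, adjusted p 0.224, without outer ONL 2. Runx2, the factor that acts before Sp7 and is also made in cartilage, measured 14.7 ± 2.79 CPM in trigeminal and 17.2 ± 7.87 CPM in olfactory nerve, which was not called as a difference. In both it was higher than in outer ONL, at 4.70 ± 2.52 CPM (log2 fold change 1.64 ± 0.51, edgeR adjusted p 0.0196 for trigeminal nerve, lost without trigeminal nerve 3 at 1.495, adjusted p 0.062, and 1.93 ± 0.49, adjusted p 0.00671 for olfactory nerve), and lower in inner than in outer ONL (-2.38 ± 0.56, adjusted p 0.00582).

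The resorption enzymes were led by Ctsk, cathepsin K, the collagen-degrading protease of osteoclasts that fibroblasts also make. Ctsk measured 139, 129 and 124 CPM in trigeminal nerve, against 262, 190.0, 226 and 162 CPM in olfactory nerve and, in ONL, 80.7, 80.6, 132 and 72.2 CPM in its outer and 16.1, 21.3, 14.9 and 30.5 CPM in its inner layer. Ctsk was higher in olfactory nerve than in outer ONL (log2 fold change 1.28 ± 0.23, edgeR adjusted p 0.000406) and lower in inner than in outer ONL (-2.10 ± 0.23, adjusted p 4.45e-05). It was lower in trigeminal than in olfactory nerve by a small margin (-0.74 ± 0.24, adjusted p 0.0302), and this call was lost without olfactory nerve 1 (-0.63, adjusted p 0.0828) or 3 (-0.68, adjusted p 0.0719) or trigeminal nerve 1 (-0.77, adjusted p 0.0716), 2 (-0.70, adjusted p 0.0945) or 3 (-0.68, adjusted p 0.106). Acp5, the tartrate-resistant phosphatase of osteoclasts and macrophages, measured 10.02, 9.02 and 13.9 CPM in trigeminal nerve, against 5.26, 5.26, 5.20 and 3.15 CPM in olfactory nerve and, in ONL, 1.99, 2.26, 2.63 and 2.75 CPM in its outer and 1.55, 0.677, 0.549 and 0.663 CPM in its inner layer. The 4 regions did not overlap. Acp5 was higher in trigeminal nerve than in outer ONL (log2 fold change 2.20 ± 0.33, edgeR adjusted p 6.41e-05) and lower in inner than in outer ONL (-1.44 ± 0.34, adjusted p 0.00671). Its difference between the nerves (1.16 ± 0.32, adjusted p 0.0122) was lost without trigeminal nerve 3 (0.99, adjusted p 0.0641) and with the replicate number as a block (1.00, adjusted p 0.0577). That between olfactory nerve and outer ONL (1.04 ± 0.31, adjusted p 0.0206) was lost without olfactory nerve 3 (0.94, adjusted p 0.0613), without outer ONL 1 (0.91, adjusted p 0.0676), with no filter (0.99, adjusted p 0.0526) and with the replicate number as a block (0.97, adjusted p 0.0507).

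Mmp13, the collagenase of hypertrophic cartilage and of osteoblasts, measured 0.685 to 1.19 CPM in trigeminal nerve and 0.304 ± 0.609 CPM in olfactory nerve. Outer and inner ONL were at the floor. Against outer ONL it was called higher in trigeminal nerve, at least 4.63-fold (edgeR adjusted p 0.0321). That call was lost without outer ONL 1 (log2 fold change 4.25, adjusted p 0.0672), 2 (4.21, adjusted p 0.0751) or 3 (4.24, adjusted p 0.0654) and without trigeminal nerve 1 (4.34, adjusted p 0.0807), 2 (4.74, adjusted p 0.0513) or 3 (4.54, adjusted p 0.064). The log2 fold change was 7.06, adjusted p 0.0459, without outer ONL 4. DESeq2 did not call it (4.85, adjusted p 0.285), nor did the fits of all 31 libraries (regrouped 4.58, adjusted p 0.0549, and by label 4.58, adjusted p 0.0593). Its fitted value between olfactory nerve and outer ONL was not called (3.08 ± 1.57, adjusted p 0.177, with 5.58, adjusted p 0.146, without outer ONL 4).

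The cartilage collagens were highest in olfactory nerve, with the exception of 2 chains of type IX. Col2a1 encodes the main fibrillar collagen of cartilage. It measured 49.8, 66.8 and 54.8 CPM in trigeminal nerve, against 635, 3790.0, 1518 and 1519 CPM in olfactory nerve and, in ONL, 265, 489.8, 715 and 783 CPM in its outer and 314, 209.9, 251 and 179.6 CPM in its inner layer. Trigeminal nerve was the lowest region for Col2a1, below every ONL library, and olfactory nerve 2 was the highest library. Col2a1 was 34.0-fold lower in trigeminal than in olfactory nerve (log2 fold change -5.09 ± 0.54, edgeR adjusted p 2.49e-06, and -4.49, adjusted p 8.23e-07, without olfactory nerve 2) and 9.80-fold lower than in outer ONL (-3.29 ± 0.49, adjusted p 5.44e-05). Col2a1 was higher in olfactory nerve than in outer ONL (1.79 ± 0.41, adjusted p 0.0033, and 1.20, adjusted p 0.0132, without olfactory nerve 2). Its lower level in inner than in outer ONL (-1.21 ± 0.40, adjusted p 0.0463) was lost without outer ONL 2 (-1.26, adjusted p 0.0599), 3 (-1.09, adjusted p 0.11) or 4 (-0.995, adjusted p 0.138) or inner ONL 2 (-1.16, adjusted p 0.118), 3 (-1.25, adjusted p 0.0738) or 4 (-1.10, adjusted p 0.113).

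Type IX collagen is a heterotrimer of the products of Col9a1, Col9a2 and Col9a3 that coats the type II fibril, and its 3 chains parted between the nerves. Col9a1 measured 87.4, 85.2 and 61.0 CPM in trigeminal nerve, against 96.8, 488, 151 and 207 CPM in olfactory nerve and, in ONL, 25.6, 52.0, 76.8 and 55.8 CPM in its outer and 12.3, 11.4, 11.9 and 10.4 CPM in its inner layer. Col9a2 measured 269, 387 and 314 CPM in trigeminal nerve, against 125, 487, 269 and 262 CPM in olfactory nerve and, in ONL, 66.0, 131, 143 and 148 CPM in its outer and 42.0, 49.0, 43.1 and 38.5 CPM in its inner layer. Col9a3 measured 741, 665 and 741 CPM in trigeminal nerve, against 283, 1248, 435 and 537 CPM in olfactory nerve and, in ONL, 66.6, 184, 244 and 170.1 CPM in its outer and 73.5, 84.1, 62.3 and 60.6 CPM in its inner layer. In trigeminal nerve, Col9a2 and Col9a3 thus stood among the olfactory nerve values while Col9a1 stood below them. Col9a1 was lower in trigeminal than in olfactory nerve (log2 fold change -1.66 ± 0.42, edgeR adjusted p 0.00723, and -1.04, adjusted p 0.0234, without olfactory nerve 2). For Col9a2 (0.12 ± 0.33, adjusted p 0.833) and Col9a3 (0.14 ± 0.40, adjusted p 0.842) no difference between the nerves was called. The difference between the chains' changes was not itself tested. Per kilobase of exon the 3 chains stood at 15.4 ± 2.89, 104 ± 19.2 and 186 ± 11.3 CPM in trigeminal nerve and at 46.6 ± 34.4, 92.3 ± 48.4 and 162 ± 111 CPM in olfactory nerve, in the order 1, 2 and 3. Tcfl5, on the other strand, overlaps an exon of Col9a3 and never exceeded 66 counts.

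All 3 type IX chains were higher in olfactory nerve than in outer ONL (for Col9a1 log2 fold change 2.24 ± 0.39, edgeR adjusted p 0.000391, with 1.62, adjusted p 0.000597, without olfactory nerve 2). The log2 fold change was 1.298 ± 0.31, adjusted p 0.00478, for Col9a2 and 1.98 ± 0.39, adjusted p 0.000994, for Col9a3. In trigeminal nerve, Col9a2 (log2 fold change 1.42 ± 0.33, edgeR adjusted p 0.00309) and Col9a3 (2.12 ± 0.41, adjusted p 0.000639) were also higher than in outer ONL. In inner ONL, Col9a1 (log2 fold change -2.16 ± 0.40, edgeR adjusted p 0.00117) and Col9a2 (-1.47 ± 0.32, adjusted p 0.00334) were lower than in outer ONL. For Col9a3 that call (-1.21 ± 0.38, adjusted p 0.0345) was lost without outer ONL 2 (-1.15, adjusted p 0.0707), 3 (-0.99, adjusted p 0.111) or 4 (-1.19, adjusted p 0.0661) and without any inner ONL library (1, -1.24, adjusted p 0.0641, 2, -1.32, adjusted p 0.0552, 3, -1.18, adjusted p 0.0749, and 4, -1.15, adjusted p 0.0805).

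Type XI collagen nucleates the type II fibril. Col11a1 measured 160.3, 140.2 and 146 CPM in trigeminal nerve, against 266, 527, 358 and 360.4 CPM in olfactory nerve and, in ONL, 99.5, 122, 161 and 144 CPM in its outer and 55.3, 66.2, 43.2 and 58.5 CPM in its inner layer. Col11a1 was lower in trigeminal than in olfactory nerve (log2 fold change -1.40 ± 0.22, edgeR adjusted p 0.000119), higher in olfactory nerve than in outer ONL (1.59 ± 0.20, adjusted p 1.42e-05) and lower in inner than in outer ONL (-1.20 ± 0.20, adjusted p 0.000522). Col11a2 measured 42.5, 34.4 and 41.3 CPM in trigeminal nerve, against 29.7, 148, 80.9 and 75.9 CPM in olfactory nerve and, in ONL, 6.29, 24.2, 37.4 and 32.8 CPM in its outer and 7.87, 7.82, 3.45 and 5.96 CPM in its inner layer. Its trigeminal nerve values lay within the range of olfactory nerve. Col11a2 was higher in olfactory nerve than in outer ONL (log2 fold change 1.80 ± 0.46, edgeR adjusted p 0.00701) and lower in inner than in outer ONL (-1.97 ± 0.48, adjusted p 0.00751). Col10a1, the collagen of hypertrophic chondrocytes, was low, at 7.48 ± 3.82 CPM in olfactory nerve, against 0.532 ± 0.310 CPM in trigeminal nerve and 0.609 ± 0.245 CPM in outer ONL. It was lower in trigeminal than in olfactory nerve (log2 fold change -3.86 ± 0.62, edgeR adjusted p 0.000161) and higher in olfactory nerve than in outer ONL (3.67 ± 0.56, adjusted p 0.000111). An exon of Col10a1 overlaps Nt5dc1 on the other strand, which reached 451 counts in a library, and the strand setting of the counting is not given in the sources used here.

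Among the other cartilage genes, Acan, Matn1, Matn3 and Hapln1 formed a group 16-fold or more lower in trigeminal than in olfactory nerve. Acan, aggrecan, measured 4.18, 6.49 and 5.29 CPM in trigeminal nerve, against 33.5, 201, 66.4 and 85.8 CPM in olfactory nerve and, in ONL, 1.15, 24.1, 23.5 and 17.5 CPM in its outer and 0.0672, 1.28, 0.549 and 0.843 CPM in its inner layer. Hapln1, the link protein that ties aggrecan to hyaluronan, measured 6.49, 6.53 and 4.85 CPM in trigeminal nerve, against 29.8, 184, 61.5 and 103 CPM in olfactory nerve and, in ONL, 4.75, 14.4, 20.1 and 16.8 CPM in its outer and 7.73, 3.68, 4.32 and 2.65 CPM in its inner layer. For both genes olfactory nerve stood clear of trigeminal nerve and of ONL. Acan was lower in trigeminal than in olfactory nerve (log2 fold change -4.24 ± 0.78, edgeR adjusted p 0.000523, and -3.61, adjusted p 0.00129, without olfactory nerve 2), higher in olfactory nerve than in outer ONL (2.60 ± 0.64, adjusted p 0.00553, and 1.98, adjusted p 0.0255, without olfactory nerve 2) and lower in inner than in outer ONL (-4.57 ± 0.81, adjusted p 0.000811). Hapln1 was lower in trigeminal than in olfactory nerve (log2 fold change -4.04 ± 0.58, edgeR adjusted p 5.42e-05) and higher in olfactory nerve than in outer ONL (2.81 ± 0.49, adjusted p 0.000354). Its lower level in inner ONL (-1.59 ± 0.50, adjusted p 0.0334) was lost without outer ONL 2 (-1.56, adjusted p 0.058), 3 (-1.38, adjusted p 0.093) or 4 (-1.48, adjusted p 0.0773) or inner ONL 2 (-1.50, adjusted p 0.0945), 3 (-1.58, adjusted p 0.0666) or 4 (-1.39, adjusted p 0.0928), and with the replicate number as a block (-1.60, adjusted p 0.0546).

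Matrilins bridge collagen fibrils and aggrecan, and Matn1 and Matn3 are made mainly by cartilage. Matn1 measured 6.81, 6.56 and 7.49 CPM in trigeminal nerve, against 39.1, 358, 88.2 and 106 CPM in olfactory nerve and, in ONL, 1.46, 32.5, 33.1 and 27.9 CPM in its outer and 0.0672, 0.451, 0.314 and 0.120 CPM in its inner layer. Matn3 measured 4.36, 1.08 and 1.06 CPM in trigeminal nerve, against 10.5, 85.6, 28.6 and 33.4 CPM in olfactory nerve and, in ONL, 3.30, 4.96, 7.96 and 8.48 CPM in its outer and 0.807, 1.13, 0.157 and 1.93 CPM in its inner layer. Both were highest in olfactory nerve, and olfactory nerve 2 exceeded the other olfactory nerve libraries. Matn1 was lower in trigeminal than in olfactory nerve (log2 fold change -4.47 ± 0.82, edgeR adjusted p 0.000522, and -3.56, adjusted p 0.001, without olfactory nerve 2), higher in olfactory nerve than in outer ONL (2.69 ± 0.66, adjusted p 0.00581, and 1.78, adjusted p 0.0335, without olfactory nerve 2) and 99.8-fold lower in inner than in outer ONL (-6.64 ± 1.00, adjusted p 0.000269). Matn3 was lower in trigeminal than in olfactory nerve (log2 fold change -4.24 ± 0.74, edgeR adjusted p 0.000327, with -3.54, adjusted p 0.000764, without olfactory nerve 2 and -5.23, adjusted p 0.000327, without trigeminal nerve 1), higher in olfactory nerve than in outer ONL (2.74 ± 0.61, adjusted p 0.00273, and 2.05, adjusted p 0.0131, without olfactory nerve 2) and lower in inner ONL (-2.54 ± 0.68, adjusted p 0.014).

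Matn4 and Cnmd departed from this pattern, each in its own direction. Matn4, a matrilin with a wider distribution than cartilage, measured 77.1, 147 and 150.5 CPM in trigeminal nerve, against 199.5, 411, 307 and 237 CPM in olfactory nerve and, in ONL, 521, 449, 688 and 679 CPM in its outer and 313, 294, 436 and 465 CPM in its inner layer. It was the 1 member called lower in olfactory nerve than in outer ONL (log2 fold change -0.94 ± 0.25, edgeR adjusted p 0.00875), and was also lower in trigeminal nerve than in olfactory nerve (-1.27 ± 0.27, adjusted p 0.00203) and outer ONL (-2.21 ± 0.28, adjusted p 1.26e-05). An exon of Matn4 overlaps Rbpjl on the other strand, which reached 726 counts. Cnmd, chondromodulin, a membrane protein of cartilage and tendon that restrains vessel growth, measured 519.8, 476 and 403 CPM in trigeminal nerve, against 80.5, 479, 138 and 185 CPM in olfactory nerve and, in ONL, 6.29, 51.3, 64.3 and 51.5 CPM in its outer and 1.88, 2.63, 1.73 and 1.45 CPM in its inner layer. The trigeminal nerve values were close together and near the highest olfactory nerve value. Between the nerves Cnmd was not called (1.023 ± 0.55, adjusted p 0.184). It was 10.8-fold higher in trigeminal nerve than in outer ONL (log2 fold change 3.43 ± 0.58, edgeR adjusted p 0.000196), higher in olfactory nerve than in outer ONL (2.41 ± 0.54, adjusted p 0.00291, and 1.71, adjusted p 0.012, without olfactory nerve 2) and lower in inner than in outer ONL (-4.48 ± 0.65, adjusted p 0.000191). Per kilobase of exon, Cnmd reached 253 ± 32 CPM in trigeminal nerve, where Col2a1 stood at 6.18 ± 0.946 CPM, and 119.7 ± 96.2 CPM in olfactory nerve, where Col2a1 stood at 202 ± 146 CPM.

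Comp and Snorc were low. Comp, a glycoprotein of cartilage and tendon, measured 6.39 ± 1.36 CPM in olfactory nerve, against 3.00 ± 0.951 CPM in trigeminal nerve and 2.21 ± 1.56 CPM in outer ONL. It was lower in inner than in outer ONL (log2 fold change -3.11 ± 0.67, edgeR adjusted p 0.00329, and -3.74, adjusted p 0.00406, without inner ONL 2). Its higher level in olfactory nerve than in outer ONL (1.59 ± 0.54, adjusted p 0.0363) was lost without olfactory nerve 2 (1.47, adjusted p 0.0774), 3 (1.61, adjusted p 0.0556) or 4 (1.53, adjusted p 0.0728) or outer ONL 1 (1.19, adjusted p 0.0511) or 4 (1.49, adjusted p 0.0911), and with the 2 groups alone (1.55, adjusted p 0.0621). Snorc, a small membrane proteoglycan of chondrocytes, measured 0.289 ± 0.314 CPM in trigeminal nerve, against 2.45 ± 1.20 CPM in olfactory nerve and, in ONL, 0.599 ± 0.597 CPM in its outer and 0.110 ± 0.139 CPM in its inner layer. Its lower level in trigeminal than in olfactory nerve (log2 fold change -3.12 ± 0.97, edgeR adjusted p 0.0238) was lost without olfactory nerve 4 (-2.79, adjusted p 0.0564) or trigeminal nerve 2 (-2.63, adjusted p 0.0903) or 3 (-2.77, adjusted p 0.0901) and with the replicate number as a block (-3.05, adjusted p 0.064), and was -4.44, adjusted p 0.0141, without trigeminal nerve 1. Between olfactory nerve and outer ONL, Snorc was not called (2.07 ± 0.84, adjusted p 0.0812) but passed the threshold without outer ONL 2 (2.91, adjusted p 0.0335) and with the replicate number as a block (2.33, adjusted p 0.0295). Between inner and outer ONL it was not called (-2.42 ± 1.06, adjusted p 0.139), and the value was -2.83, adjusted p 0.0491, without outer ONL 1, -1.58, adjusted p 0.429, without outer ONL 2 and -3.58, adjusted p 0.0721, without inner ONL 3.

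**Figure D3:**
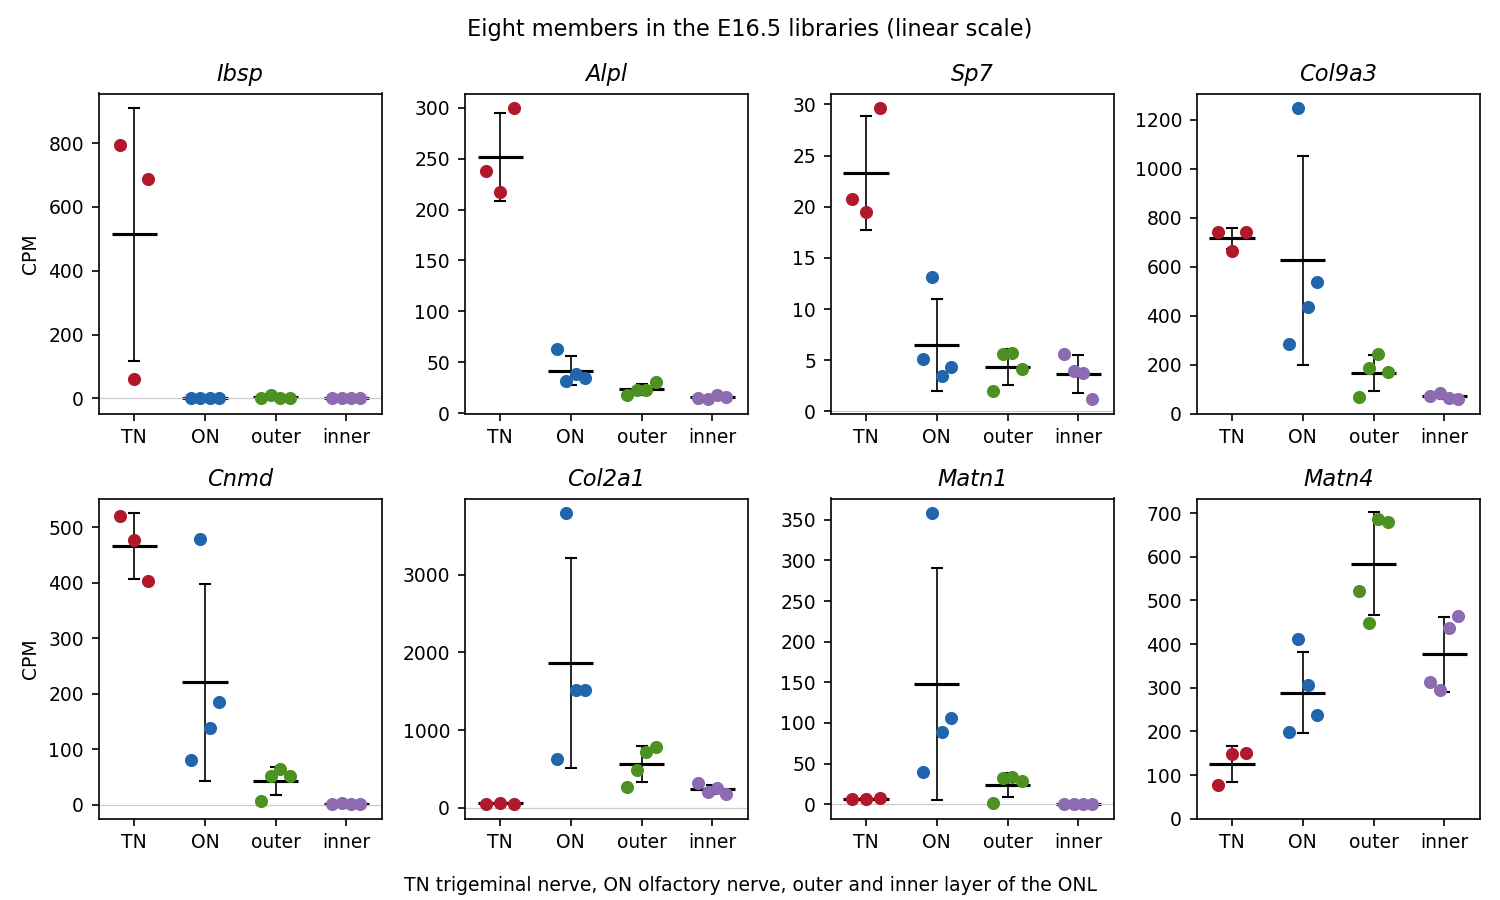
Level in CPM (y axis, linear) of Ibsp, Alpl, Sp7, Col9a3, Cnmd, Col2a1, Matn1 and Matn4 in the 4 E16.5 regions (x axis), with a dot for each library, a line for the mean and bars for the SD. Ibsp, Alpl and Sp7 are highest in trigeminal nerve, Col2a1 and Matn1 in olfactory nerve, Col9a3 and Cnmd reach high values in both nerves, and Matn4 is highest in outer ONL.

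Across the olfactory system, most members were higher in nerve than in outer ONL. Of the 30 tested members, 22 were higher in olfactory nerve than in outer ONL and 1 was lower, against 15.4% and 10.3% of all genes tested, and the median log2 fold change was 1.80, or 1.64 with members at the floor set to their bound, against 0.049 over all genes. All 7 cartilage collagens and 6 of the 8 other cartilage genes were higher in olfactory nerve, as were 6 of 9 bone matrix genes, Runx2 and both Acp5 and Ctsk. In a fit of all 31 libraries grouped by label, 11 were higher. In the fits of all 31 libraries, calls lost with either grouping were those of Spp1 (0.285 and 0.444), Postn (0.364 and 0.526), Acp5 (0.352 and 0.445), Comp (0.105 and 0.148) and Matn4 (0.0756 and 0.101) (edgeR adjusted p regrouped and by label), and by label also those of Dmp1 (0.128), Alpl (0.125), Sparc (0.0523), Runx2 (0.208), Ctsk (0.121), Acan (0.0849) and Matn1 (0.0559). Without outer ONL 1 or 3, Ibsp was also lower. The tests given here have no pair term, and the counts were also 22 and 1 with the replicate number as a block. In inner ONL, 18 members were lower than in outer ONL and 0 were higher, against 7.54% and 10.1% of all genes, with a median of -1.53 against -0.017 over all genes. The part of the olfactory bulb tissue in inner pieces in these differences was not tested. At an unadjusted p under 0.05, edgeR also called 0 members higher in inner ONL, and so did DESeq2. Those lower were 3 bone matrix genes (Omd, Postn and Sparc), Runx2, Acp5, Ctsk, 6 cartilage collagens and 6 other cartilage genes. The fits of all 31 libraries lost, with either grouping, the calls of Postn (0.113 and 0.293), Acp5 (0.217 and 0.319), Col9a3 (0.0627 and 0.0851) and Hapln1 (0.0899 and 0.162) (edgeR adjusted p regrouped and by label), and by label also those of Runx2 (0.179) and Col2a1 (0.118).

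Trigeminal nerve differed from outer ONL mainly in the bone members. There, 16 members were higher in trigeminal nerve and 2, Col2a1 and Matn4, were lower, against 16.2% and 15.1% of all genes, with a median log2 fold change of 1.48 against 0.0039. Without outer ONL 1, 5 were lower, Acan, Hapln1 and Matn1 being added. The 16 comprised 8 of 9 tested bone matrix genes, all 3 bone regulators, Acp5 and Mmp13, and of the cartilage members Col9a2, Col9a3 and Cnmd. In the fits of all 31 libraries, calls of Dmp1 (0.0808 and 0.211) and Mmp13 (0.0549 and 0.0593) (edgeR adjusted p regrouped and by label) were lost, and by label also those of Runx2 (0.275) and Acp5 (0.0551). The 3 comparisons with outer ONL share its 4 libraries, and those of trigeminal nerve share its 3 libraries. When libraries were scaled by total counts in place of TMM, the median of all genes moved from -0.026 to -0.223 between the nerves and from 0.0039 to -0.127 between trigeminal nerve and outer ONL. Counts of members called were the same under both scalings.

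In olfactory nerve and outer ONL, the spread among libraries ran together across cartilage members. At E16.5, no trigeminal nerve or inner ONL library was the highest or lowest for as large a share of them. Of cartilage members with a mean of at least 1 CPM, each trigeminal nerve library was the highest for 3 to 6 of 13 and the lowest for 4 to 5. Each inner ONL library was the highest for 0 to 4 of 10 and the lowest for 0 to 6, with 6 in inner ONL 4. Olfactory nerve 2 was the highest of its group for 13 of the 15 cartilage members and olfactory nerve 1 the lowest for 14. Summed over the cartilage members, the 4 olfactory nerve libraries measured 1839, 8427, 3513 and 3734 CPM. The trigeminal nerve libraries summed to 1933 to 2026 CPM, those of outer ONL to 1068 to 2219 CPM and those of inner ONL to 732 to 859 CPM. Outer ONL 1 was the lowest of its group for 12 of the 13 cartilage members with a mean of at least 1 CPM there. Its summed level of 8 glial genes was the highest of outer ONL, at 35780 CPM against 20000 CPM in the lowest library, and the part of that in the cartilage levels was not tested. Of the bone matrix members with a mean of at least 1 CPM, olfactory nerve 1 and 2 were each the highest of their group for 3 of 7, and in outer ONL library 1 was the lowest for 4 of 8 and library 3 the highest for 4 of 8. Both bone regulators at that level were highest in olfactory nerve 2 and lowest in outer ONL 1. Over all members at that level, outer ONL 1 was the lowest of its group for 19 of 25.

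**Figure D4:**
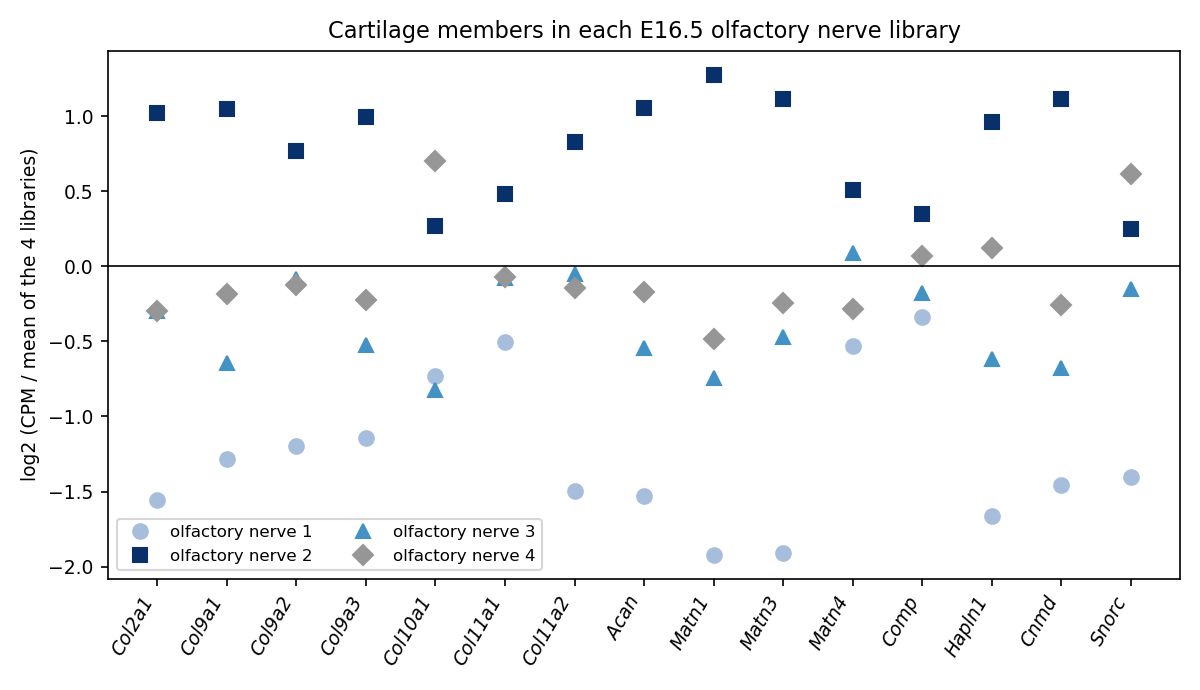
Log2 ratio of each E16.5 olfactory nerve library to the mean of the 4 (y axis) for the 15 cartilage members (x axis), with 1 marker shape for each library. The marker of olfactory nerve 2 lies above the others for 13 members and that of olfactory nerve 1 below them for 14.

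The early libraries show which members were already present at E13.5. Several pieces came from 1 embryo at these stages, 4 pieces from 2 embryos at E11.5 and 7 nerve and 5 ONL pieces from 4 embryos at E13.5, and labels do not tie pieces to embryos, so p-values over pieces are too small in every comparison with an early group. Between E13.5 and E16.5, 21 of 30 tested members were higher in the later olfactory nerve and 0 were lower, against 15.2% and 13.6% of all 19332 genes tested, and at an unadjusted p under 0.05 neither edgeR nor DESeq2 called any lower. By label the shares of all genes were 12.4% and 12.6%. All 15 cartilage members were among the 21, with a median log2 fold change of 2.83 over the collagens and 3.92 over the others. Of the bone matrix genes, Omd, Sparc, Postn and Spp1 rose, as did Sp7 and Ctsk.

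Between E11.5 and E13.5, 7 of 9 bone matrix genes rose in nerve with the early libraries regrouped, and 2 by label. In the later nerve 14 members were higher and 2, Acp5 and Col2a1, were lower, against 20.2% and 16.4% of all genes (by label, 9.31% and 8.18%). The 14 comprised 7 of 9 bone matrix genes, Runx2, Tnfsf11, Ctsk, Col11a1, Acan, Matn1 and Cnmd. By label, 7 members were higher and 0 lower, the 7 being 2 bone matrix genes, Alpl and Omd, and 5 cartilage members, Col9a2, Col10a1, Acan, Matn1 and Cnmd. The steps before and after E13.5 were not compared by a test. With the regrouped libraries but without the library labelled E13.5 olfactory nerve 7 Hapln1 and Matn3 were also lower, making 4. For E13.5 olfactory nerve against E13.5 ONL, 11 members were higher and 1, Spp1, was lower, against 16.1% and 15.4% of all genes (by label, 8.81% and 8.88%). Without the library labelled E11.5 olfactory nerve 3, 0 were lower. Without E13.5 olfactory nerve 1 the count was 2, Matn3 being added, and without E13.5 olfactory nerve 7 it was 3, with Col9a3 as well. In outer ONL at E16.5 against E13.5 ONL, 20 members were higher and 0 lower, against 21.9% and 20% of all genes (by label, 18.2% and 17.1%), and again 0 were lower at an unadjusted p under 0.05 by edgeR or by DESeq2.

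**Figure D5:**
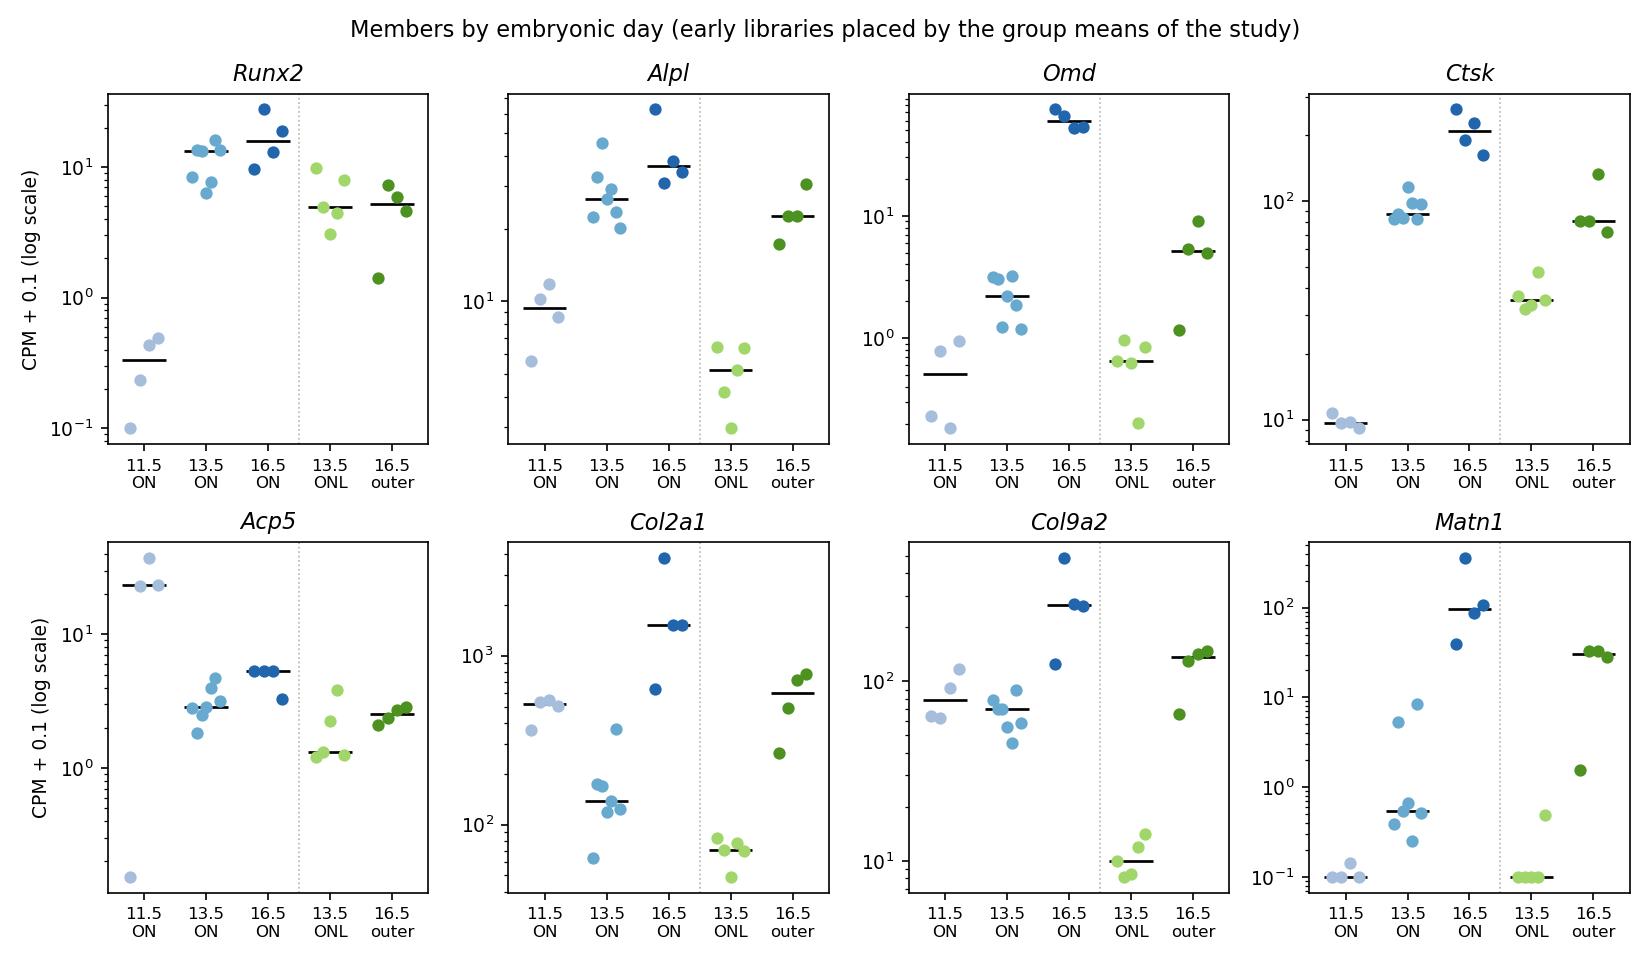
Level in CPM with 0.1 added (y axis, log scale) of Runx2, Alpl, Omd, Ctsk, Acp5, Col2a1, Col9a2 and Matn1 by stage (x axis), in olfactory nerve and in ONL (outer ONL at E16.5). Dots are libraries, and a short horizontal bar marks the median of each group. Early libraries are placed as regrouped. By label, the changes of Acp5 and Col2a1 from E11.5 to E13.5 nerve turn in direction. In the regrouped libraries Matn1 climbs from the floor at E11.5 to 39.1 to 358 CPM in E16.5 nerve, while Acp5 is highest in 3 of the 4 E11.5 libraries.

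In the following, values of the E13.5 olfactory nerve are the lowest, median and highest of 7 libraries, and those of the other early groups are given library by library. The bone genes differed in the step at which a rise in nerve was called, and several of these calls were lost by label. Runx2 was at 0.214 ± 0.179 CPM in E11.5, 11.2 ± 3.76 CPM in E13.5 and 17.2 ± 7.87 CPM in E16.5 olfactory nerve. Its rise to E13.5 was 53.4-fold (5.74 ± 0.64, edgeR adjusted p 4.51e-08, and 0.97, adjusted p 0.51, by label). Sp7 was low at E11.5 (1.17, 0, 0.747 and 0.614 CPM), E13.5 (0.173, 1.04 and 2.27 CPM) and in E13.5 ONL (1.38, 0.720, 2.66, 1.25 and 4.65 CPM). By E16.5 it had risen in olfactory nerve (2.40 ± 0.58, edgeR adjusted p 0.00216, and 1.82, adjusted p 0.0254, by label, with 1.80, adjusted p 0.0289, without olfactory nerve 2). Tnfsf11 was at the floor at E11.5 and averaged 0.250 ± 0.354 CPM at E13.5. It was at least 2.62-fold higher at E13.5 (adjusted p 0.0204, and log2 fold change 1.22, adjusted p 0.643, by label). That call was lost without the libraries labelled E13.5 olfactory nerve 4 (3.57, adjusted p 0.0521) or E13.5 ONL 2 (3.88, adjusted p 0.0529), 3 (3.90, adjusted p 0.05) or 5 (3.92, adjusted p 0.0508), and was 5.29, adjusted p 0.0209, without E13.5 ONL 4. Between E13.5 nerve and ONL its fitted value was not called (2.05 ± 1.33, edgeR adjusted p 0.272, and 3.45, adjusted p 0.0765, by label), but passed the threshold without the library labelled E11.5 olfactory nerve 1 (5.34, adjusted p 0.0216), and was 1.41, adjusted p 0.506, without E13.5 olfactory nerve 1 and 1.39, adjusted p 0.506, without E13.5 olfactory nerve 4.

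Alpl measured 5.53, 10.1, 11.7 and 8.50 CPM at E11.5, 20.1, 26.4 and 45.2 CPM in E13.5 nerve and 6.36, 4.10, 2.86, 5.08 and 6.30 CPM in E13.5 ONL. Alpl rose in nerve to E13.5 (1.67 ± 0.24, edgeR adjusted p 3.51e-06, and 2.58, adjusted p 0.000116, by label), was higher in E13.5 nerve than ONL (2.55 ± 0.24, edgeR adjusted p 1.39e-09, and 1.25, adjusted p 0.00912, by label) and rose in ONL to the outer layer of E16.5 (2.26 ± 0.26, edgeR adjusted p 5.04e-08, and 1.06, adjusted p 0.0182, by label). Omd measured 0.132, 0.678, 0.0829 and 0.840 CPM at E11.5, 1.08, 2.11 and 3.11 CPM in E13.5 nerve and 0.553, 0.864, 0.520, 0.104 and 0.752 CPM in E13.5 ONL. In nerve it rose at both steps (2.26 ± 0.52, edgeR adjusted p 0.00101, and 1.98, adjusted p 0.0321, by label, to E13.5, and 4.84 ± 0.44, edgeR adjusted p 3.31e-09, and 4.88, adjusted p 1.89e-07, by label, to E16.5). Omd was also higher in E13.5 nerve than ONL (1.84 ± 0.52, edgeR adjusted p 0.00618, and 1.95, adjusted p 0.0138, by label) and rose in ONL to E16.5 (3.07 ± 0.55, edgeR adjusted p 3.74e-05, and 3.22, adjusted p 8.05e-05, by label). Sparc measured 618, 635, 753 and 619.7 CPM at E11.5, 1002, 1246 and 1449 CPM in E13.5 nerve and 712, 836, 1016, 1043 and 1009 CPM in E13.5 ONL. It rose at both steps in nerve (0.91 ± 0.13, edgeR adjusted p 3.98e-06, and 0.37, adjusted p 0.172, by label, to E13.5, and 1.63 ± 0.13, edgeR adjusted p 1.53e-10, and 1.70, adjusted p 1.89e-07, by label, to E16.5). Sparc was higher in E13.5 nerve than ONL (0.42 ± 0.12, edgeR adjusted p 0.00839, and 0.52, adjusted p 0.0368, by label) and rose in ONL (1.46 ± 0.14, edgeR adjusted p 1.59e-09, and 1.64, adjusted p 2.92e-07, by label).

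Postn measured 412, 43.6, 319.5 and 133 CPM at E11.5, 571, 775 and 1010.0 CPM in E13.5 nerve and 775, 225, 477, 766 and 548 CPM in E13.5 ONL. Postn rose in nerve to E13.5 (1.77 ± 0.36, edgeR adjusted p 0.000262, and 0.34, adjusted p 0.651, by label) and to E16.5 (1.33 ± 0.32, edgeR adjusted p 0.00237, and 1.46, adjusted p 0.0102, by label), and in ONL (1.28 ± 0.35, edgeR adjusted p 0.00415, and 1.82, adjusted p 0.00262, by label). Spp1 measured 0, 0, 2.36 and 1.36 CPM at E11.5, 1.78, 3.85 and 11.4 CPM in E13.5 nerve and 24.1, 1.66, 46.9, 13.7 and 21.2 CPM in E13.5 ONL. Spp1 was called higher in nerve at E13.5 than E11.5 (2.70 ± 0.80, edgeR adjusted p 0.0088, and -1.46, adjusted p 0.241, by label), where the direction turned by label, and was 3.73, adjusted p 0.0027, without the library labelled E13.5 ONL 4 and 2.70, adjusted p 0.0568, with the 2 groups alone. Its rise to E16.5 (1.97 ± 0.66, edgeR adjusted p 0.0252, and 1.54, adjusted p 0.172, by label) was lost without E16.5 olfactory nerve 2 (1.89, adjusted p 0.0561). It was lower in E13.5 nerve than ONL (-1.88 ± 0.64, edgeR adjusted p 0.0228, and 1.84, adjusted p 0.135, by label), a call lost without the library labelled E11.5 olfactory nerve 3 (-1.36, adjusted p 0.134) and turned by label. Dmp1 averaged 1.11 ± 1.83 CPM at E11.5, 10.8 ± 3.55 CPM in E13.5 nerve and 1.48 ± 0.887 CPM in E13.5 ONL. Dmp1 was higher in E13.5 nerve than at E11.5 (3.29 ± 0.79, edgeR adjusted p 0.00153, and 2.46, adjusted p 0.0916, by label, with 5.85, adjusted p 4.62e-06, without the library labelled E13.5 ONL 5) and than in E13.5 ONL (2.79 ± 0.72, edgeR adjusted p 0.00301, and 1.48, adjusted p 0.232, by label).

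Ibsp, Phex and Ifitm5, genes of mineralising bone, were low in the early groups. They were also low in E16.5 olfactory nerve, at means of 0.179, 0.659 and 1.33 CPM. Trigeminal nerve was not sampled before E16.5. Phex averaged 0.704 ± 0.499 CPM in E13.5 and 0.0703 ± 0.120 CPM in E11.5 nerve (3.36 ± 1.03, edgeR adjusted p 0.011, and 0.94, adjusted p 0.657, by label, with 5.38, adjusted p 0.00176, without the library labelled E13.5 ONL 4). Ibsp had 0 counts in each of the 16 early libraries. It was called higher in E16.5 outer ONL than in E13.5 ONL, at least 7.99-fold (adjusted p 0.0145, and log2 fold change 8.60, adjusted p 0.00655, by label). This call rested on outer ONL 2 (log2 fold change 3.82, adjusted p 0.414, without it), and DESeq2 did not make it (log2 fold change 7.37, adjusted p 0.186). The fitted change in nerve, where 1 E16.5 library had Ibsp counts above the floor, was not called (4.66 ± 4.13, adjusted p 0.437, with 4.66, adjusted p 0.394, by label). Without E16.5 olfactory nerve 3 it was 0.00, adjusted p 1. Ifitm5 measured 0.450, 1.28, 0.539 and 0.194 CPM at E11.5, 0.349, 1.08 and 1.90 CPM in E13.5 nerve and 0, 0.576, 0.650, 0.311 and 0.322 CPM in E13.5 ONL. Its higher level in E16.5 outer ONL than in E13.5 ONL (2.34 ± 0.71, edgeR adjusted p 0.0082, and 1.62, adjusted p 0.0667, by label) was likewise lost without outer ONL 2 (1.00, adjusted p 0.257).

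With the regrouped libraries, Ctsk was higher and Acp5 lower at E13.5 than at E11.5. Ctsk measured 10.6, 9.55, 9.62 and 9.01 CPM at E11.5, 82.4, 86.9 and 116 CPM in E13.5 nerve and 36.8, 31.9, 33.2, 47.0 and 35.3 CPM in E13.5 ONL. It rose 9.53-fold to E13.5 (3.25 ± 0.20, edgeR adjusted p 4.23e-13, and 1.17, adjusted p 0.0943, by label) and 2.27-fold to E16.5 (1.19 ± 0.17, edgeR adjusted p 4.08e-06, and 1.33, adjusted p 0.0282, by label). Ctsk was higher in E13.5 nerve than ONL (1.33 ± 0.17, edgeR adjusted p 2.13e-07, and 1.65, adjusted p 0.014, by label) and rose in ONL (1.31 ± 0.18, edgeR adjusted p 1.16e-06, and 1.78, adjusted p 0.00596, by label). Acp5 measured 0.0529, 23.0, 37.2 and 23.4 CPM at E11.5, from 2, 847, 898 and 726 counts, 1.73, 2.76 and 4.61 CPM in E13.5 nerve and 1.11, 1.22, 2.14, 3.73 and 1.15 CPM in E13.5 ONL. The 3 high libraries are those labelled E13.5 ONL 3 to 5, and the library labelled E13.5 ONL 2 was below every E13.5 nerve library. Acp5 was lower at E13.5 (-2.78 ± 0.57, edgeR adjusted p 0.000304, and 0.39, adjusted p 0.77, by label), and the direction turned by label. In the same E11.5 libraries 3 of 10 further osteoclast genes, Oscar, Dcstamp and Atp6v0d2, were at the floor. The 10 genes summed to 19.5 to 53.1 CPM there, against 43.6 to 80.6 CPM in E13.5 nerve. The summed level of 6 macrophage genes was 14.8 to 168 CPM in these E11.5 libraries. Grouped by label, Acp5 was lower in E13.5 nerve than in E13.5 ONL (-2.66, adjusted p 0.00544) and lower in E16.5 outer ONL than in E13.5 ONL (-2.85, adjusted p 0.00495). Mmp13 was under 1 CPM in every early library. Its fitted values were not called between E16.5 and E13.5 nerve (2.62 ± 1.42, edgeR adjusted p 0.178, and 4.26, adjusted p 0.0472, by label, with 4.03, adjusted p 0.0777, without the library labelled E13.5 ONL 1).

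From E11.5 to E13.5 in nerve, regrouped, the 7 cartilage collagens had a median log2 fold change of -0.20. Among them, only Col2a1 was called lower at E13.5. It measured 364, 532, 547 and 503 CPM in the 4 E11.5 nerve libraries, 63.6, 137 and 369 CPM in E13.5 nerve and 83.5, 70.8, 49.0, 77.7 and 69.5 CPM in E13.5 ONL. The highest E13.5 nerve library, labelled E13.5 olfactory nerve 7, overlapped the E11.5 range. Col2a1 was lower at E13.5 than at E11.5 (-1.56 ± 0.34, edgeR adjusted p 0.000683, and 1.16, adjusted p 0.069, by label), and here the direction turned by label. It then rose 11.3-fold to E16.5 (3.5 ± 0.35, edgeR adjusted p 2.16e-08, and 3.57, adjusted p 1.03e-06, by label, with 2.89, adjusted p 2.31e-07, without E16.5 olfactory nerve 2). In E13.5 nerve it was higher than in ONL (1.24 ± 0.35, edgeR adjusted p 0.00587, and -1.40, adjusted p 0.0154, by label), which also turned by label, and rose in ONL (3.01 ± 0.40, edgeR adjusted p 4.33e-07, and 0.44, adjusted p 0.463, by label).

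Col9a1 measured 34.1, 42.0, 35.9 and 40.4 CPM at E11.5, 7.36, 26.8 and 96.9 CPM in E13.5 nerve and 21.0, 11.4, 17.9, 17.0 and 15.8 CPM in E13.5 ONL. It rose to E16.5 in nerve (2.83 ± 0.41, edgeR adjusted p 6.48e-06, and 2.91, adjusted p 2.5e-05, by label, with 2.20, adjusted p 0.000183, without E16.5 olfactory nerve 2) and in ONL (1.68 ± 0.46, edgeR adjusted p 0.00384, and 0.55, adjusted p 0.383, by label). Col9a2 measured 64.4, 62.8, 92.2 and 118 CPM at E11.5, 45.1, 70.1 and 90.0 CPM in E13.5 nerve and 9.95, 8.06, 8.32, 11.8 and 14.0 CPM in E13.5 ONL. The E13.5 ONL libraries all lay below those of both nerve groups. Col9a2 rose to E16.5 in nerve (2.09 ± 0.25, edgeR adjusted p 2.62e-07, and 2.24, adjusted p 1.33e-05, by label) and in ONL (3.54 ± 0.29, edgeR adjusted p 1.81e-10, and 0.62, adjusted p 0.167, by label), and was higher in E13.5 nerve than ONL (2.67 ± 0.27, edgeR adjusted p 3.7e-09, and -0.39, adjusted p 0.392, by label), where the direction turned by label. Col9a3 measured 28.2, 19.7, 28.7 and 30.6 CPM at E11.5, 19.97, 35.3 and 156 CPM in E13.5 nerve and 74.1, 94.6, 53.1, 77.3 and 64.8 CPM in E13.5 ONL. Col9a3 rose to E16.5 in nerve (3.54 ± 0.39, edgeR adjusted p 1.08e-07, and 3.41, adjusted p 7.26e-07, by label). In ONL its rise (1.19 ± 0.42, edgeR adjusted p 0.023, and 2.60, adjusted p 3.07e-05, by label) was lost without E16.5 outer ONL 3 (0.95, adjusted p 0.0964) or the library labelled E11.5 olfactory nerve 3 (1.09, adjusted p 0.0565). By label, Col9a3 was also called higher in E13.5 nerve than in E13.5 ONL (1.10, adjusted p 0.0446).

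Col11a1 measured 42.7, 52.8, 62.3 and 32.3 CPM at E11.5, 56.9, 87.0 and 118 CPM in E13.5 nerve and 85.7, 51.1, 88.2, 95.9 and 75.1 CPM in E13.5 ONL. It rose in nerve to E13.5 (0.83 ± 0.20, edgeR adjusted p 0.00176, and 0.07, adjusted p 0.878, by label) and E16.5 (2.16 ± 0.19, edgeR adjusted p 1.55e-09, and 2.17, adjusted p 5.09e-08, by label) and in ONL (0.74 ± 0.21, edgeR adjusted p 0.00519, and 1.299, adjusted p 6.3e-05, by label). Col11a2 measured 7.57, 3.39, 3.11 and 3.75 CPM at E11.5, 1.32, 3.00 and 4.26 CPM in E13.5 nerve and 1.66, 4.68, 2.73, 1.45 and 3.19 CPM in E13.5 ONL. Its rise to E16.5 was 30.2-fold in nerve (4.92 ± 0.41, edgeR adjusted p 6e-10, and 4.78, adjusted p 1.72e-08, by label) and 8.74-fold in ONL (3.13 ± 0.44, edgeR adjusted p 1.35e-06, and 2.69, adjusted p 3.17e-05, by label). Col10a1 averaged 0.719 ± 0.250 CPM at E11.5 and 1.65 ± 0.981 CPM in E13.5 nerve, and was at the floor in E13.5 ONL. Col10a1 rose in nerve to E16.5 (2.21 ± 0.46, edgeR adjusted p 0.000514, and 2.31, adjusted p 0.00559, by label). Against the floor it was at least 4.98-fold higher in E13.5 nerve than ONL (adjusted p 2.64e-07, and log2 fold change 1.05, adjusted p 0.222, by label) and at least 1.84-fold higher in E16.5 outer ONL (adjusted p 4.12e-05, and log2 fold change -0.24, adjusted p 0.815, by label, where the direction turned). Without the library labelled E13.5 olfactory nerve 1 the fitted log2 fold changes were 7.84, adjusted p 5.39e-06, and 6.45, adjusted p 0.000212.

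The proteoglycan and matrilin genes were higher in E16.5 than in E13.5 nerve, and Acan and Matn1 were also higher at E13.5 than at E11.5. Acan measured 0, 0, 0.124 and 0.355 CPM at E11.5, 2.68, 5.36 and 16.1 CPM in E13.5 nerve and 0.830, 0, 0.0650, 0.623 and 0.573 CPM in E13.5 ONL. It rose to E13.5 (5.76 ± 0.90, edgeR adjusted p 1.06e-05, and 4.44, adjusted p 0.0212, by label, with 7.36, adjusted p 1.64e-05, without the library labelled E13.5 ONL 5) and to E16.5 (3.92 ± 0.59, edgeR adjusted p 9.77e-06, and 4.04, adjusted p 0.00108, by label, with 3.28, adjusted p 0.000256, without E16.5 olfactory nerve 2). Acan was higher in E13.5 nerve than ONL (4.12 ± 0.80, edgeR adjusted p 0.000142, and 3.02, adjusted p 0.0325, by label) and rose in ONL (5.49 ± 0.84, edgeR adjusted p 4.1e-06, and 4.53, adjusted p 0.00148, by label). Hapln1 measured 31, 18.2, 43.3 and 23.0 CPM at E11.5, 2.39, 8.45 and 36.5 CPM in E13.5 nerve and 11.9, 8.56, 3.51, 5.08 and 5.30 CPM in E13.5 ONL, and rose to E16.5 in nerve (2.71 ± 0.52, edgeR adjusted p 0.000209, and 2.75, adjusted p 0.000786, by label). Matn3 measured 2.94, 0.570, 2.94 and 4.46 CPM at E11.5, 0.370, 0.892 and 3.42 CPM in E13.5 nerve and 4.42, 2.73, 5.33, 2.80 and 2.11 CPM in E13.5 ONL. It rose in nerve to E16.5 (4.94 ± 0.59, edgeR adjusted p 3.17e-07, and 4.75, adjusted p 3.66e-06, by label, with 4.22, adjusted p 4.95e-06, without E16.5 olfactory nerve 2).

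Matn1 measured 0, 0, 0.0415 and 0 CPM at E11.5, 0.148, 0.441 and 8.39 CPM in E13.5 nerve and 0, 0, 0, 0 and 0.394 CPM in E13.5 ONL. It was at the floor at E11.5 and at least 23.1-fold higher in E13.5 nerve (adjusted p 0.000638, and log2 fold change 8.21, adjusted p 0.0226, by label). The log2 fold change was 5.88, adjusted p 0.00403, without the library labelled E13.5 olfactory nerve 7 and 8.20, adjusted p 0.0027, without E13.5 ONL 4. It rose 71.2-fold to E16.5 (6.15 ± 0.77, edgeR adjusted p 6.82e-07, and 6.17, adjusted p 2.13e-05, by label, with 5.21, adjusted p 1.51e-05, without E16.5 olfactory nerve 2 and 7.41, adjusted p 7.58e-08, without E13.5 olfactory nerve 7). Its higher level in E13.5 nerve than ONL (3.79 ± 1.17, edgeR adjusted p 0.0124, and 5.27, adjusted p 0.00852, by label) was lost without E13.5 olfactory nerve 7 (2.53, adjusted p 0.101) and was 8.19, adjusted p 0.013, without E13.5 olfactory nerve 1. In ONL it rose to E16.5 (7.31 ± 1.13, edgeR adjusted p 4.88e-06, and 8.80, adjusted p 1.14e-05, by label, with 11.71, adjusted p 3.61e-05, without E13.5 olfactory nerve 1). Matn4 measured 11.6, 6.38, 17.6 and 16.8 CPM at E11.5, 7.47, 13.7 and 44.7 CPM in E13.5 nerve and 8.57, 6.62, 3.90, 14.5 and 16.6 CPM in E13.5 ONL. Its rise to E16.5 was 57.4-fold in ONL (5.84 ± 0.46, edgeR adjusted p 8.48e-11, and 5.26, adjusted p 1.44e-09, by label) and 15.2-fold in nerve (3.93 ± 0.37, edgeR adjusted p 5.9e-09, and 4.02, adjusted p 3.85e-08, by label), and these 2 changes were not compared by a test.

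Cnmd measured 3.87, 8.06, 1.91 and 2.46 CPM at E11.5, 1.69, 13.1 and 62.3 CPM in E13.5 nerve and 4.70, 0.216, 0.585, 2.49 and 4.72 CPM in E13.5 ONL. It rose in nerve to E13.5 (2.43 ± 0.72, edgeR adjusted p 0.00888, and 3.79, adjusted p 0.00729, by label) and to E16.5 (3.31 ± 0.63, edgeR adjusted p 0.000203, and 3.39, adjusted p 0.000711, by label, with 2.60, adjusted p 0.00332, without E16.5 olfactory nerve 2). It was higher in E13.5 nerve than ONL (3.21 ± 0.75, edgeR adjusted p 0.00116, and 1.88, adjusted p 0.0634, by label) and rose in ONL (4.17 ± 0.80, edgeR adjusted p 9.95e-05, and 2.93, adjusted p 0.00445, by label), and without the library labelled E13.5 olfactory nerve 1 these values were 3.92, adjusted p 0.00119, and 4.89, adjusted p 0.000142. Comp was under 1 CPM on average in each early group and rose to E16.5 in nerve (3.79 ± 0.62, edgeR adjusted p 3.29e-05, and 3.92, adjusted p 7.56e-05, by label) and in ONL (2.67 ± 0.71, edgeR adjusted p 0.00301, and 2.32, adjusted p 0.0101, by label). Snorc was at the floor in all early groups. It was at least 9.49-fold higher in E16.5 nerve (adjusted p 1e-05, and log2 fold change 6.55, adjusted p 4.81e-05, by label, with 8.50, adjusted p 4.03e-05, without the library labelled E13.5 olfactory nerve 3). In E16.5 outer ONL it was at least 1.81-fold higher than in E13.5 ONL (adjusted p 0.0181, and log2 fold change 6.45, adjusted p 0.000164, by label). That call was lost without outer ONL 2 (log2 fold change 2.11, adjusted p 0.108) or the library labelled E13.5 olfactory nerve 1 (2.65, adjusted p 0.0535). Between E13.5 nerve and ONL, both at the floor, no fold is given for Snorc. In E13.5 nerve the library labelled E13.5 olfactory nerve 7 was the highest for 11 of the 13 cartilage members with a mean of at least 1 CPM.

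By label, 8 tests called a member that the grouping above left uncalled. Mmp13 was then higher in E16.5 than in E13.5 nerve (4.26, adjusted p 0.0472), and Sp7 higher (2.83, adjusted p 0.00199) and Acp5 lower (against 0.36 ± 0.67, adjusted p 0.707, regrouped) in E16.5 outer ONL than in E13.5 ONL. Col9a2 (2.67, adjusted p 8.61e-05, against -0.33 ± 0.25, adjusted p 0.318, regrouped) and Col10a1 (7.76, adjusted p 0.000442, against 1.17 ± 0.50, adjusted p 0.0656) were higher at E13.5 than at E11.5 in nerve. In E13.5 nerve against ONL, Col9a3 (against -0.43 ± 0.37, adjusted p 0.42, regrouped) and Col11a1 (0.65, adjusted p 0.0275, against 0.09 ± 0.18, adjusted p 0.762) were higher, and Acp5 (against 0.69 ± 0.59, adjusted p 0.426, regrouped) was lower, and both Acp5 values and that of Col9a3 turned in direction.

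Other genes of bone and cartilage, from lists that hold none of the members, were read beside them. Of 20 further osteoblast genes, 16 were tested at E16.5. Against outer ONL, 12 were higher and 1 lower in trigeminal nerve, and 13 were higher and 0 lower in olfactory nerve. Between the nerves, Col1a2, a chain of type I collagen, was higher in trigeminal nerve (1.39 ± 0.28, adjusted p 0.00114), and Enpp1 (-1.19 ± 0.33, adjusted p 0.0127), Tnfrsf11b (-3.14 ± 0.34, adjusted p 2.95e-06) and Bmp2 (-1.65 ± 0.47, adjusted p 0.0143) were lower. Tnfrsf11b encodes osteoprotegerin, the decoy receptor that binds RANKL, so the ligand and its decoy differed in opposite directions between the nerves. In inner ONL, 2 were higher and 7 lower than in outer ONL. Of 20 further chondrocyte genes, 17 were tested, and 0 were higher and 9 lower in trigeminal than in olfactory nerve, led in level by Wwp2 (-1.51 ± 0.27, adjusted p 0.000419), Fmod (-2.29 ± 0.55, adjusted p 0.00462) and Papss2 (-1.97 ± 0.24, adjusted p 1.1e-05). Against outer ONL, 12 were higher in olfactory nerve and 2, Sox5 and Scrg1, were lower, and in trigeminal nerve 3 were higher and 2 lower. In inner ONL, 12 were lower than in outer ONL and 0 higher. Between E13.5 and E16.5 nerve, 13 of 19 tested rose and 0 fell, and for the osteoblast list 5 of 17 rose and 3 fell.

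Of 10 further osteoclast genes, 6 were tested. Itgb3 (0.88 ± 0.26, adjusted p 0.0198), Mmp9 (2.01 ± 0.33, adjusted p 0.00018) and Ocstamp, which was at the floor in olfactory nerve, were higher in trigeminal than in olfactory nerve and 0 were lower, while Oscar and Calcr were at the floor in both nerves. Against outer ONL, 2 were higher in trigeminal nerve and 0 lower, and 1 was higher and 1 lower in olfactory nerve. In inner ONL, 0 were higher and 2 lower. The 6 tooth matrix genes summed to at most 0.585 CPM in any library and were at the floor, apart from at most 2 of them in a group, and none was tested.

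Genes of other cell types moved with the same contrasts. The 8 fibroblast genes summed to 13920.0 to 19260.0 CPM in trigeminal nerve, against 6487 to 12560.0 CPM in olfactory nerve and, in ONL, 4022 to 8512 CPM in its outer and 743 to 1835 CPM in its inner layer, the same order of groups as the mean levels of Sparc and Postn. Of 7 tested, 4 were higher and 1 lower in trigeminal than in olfactory nerve, 4 were higher in olfactory nerve than in outer ONL, and 7 were lower in inner than in outer ONL. The 8 glial genes summed to 1426 to 1764 CPM in trigeminal nerve, against 1697 to 3934 CPM in olfactory nerve and, in ONL, 20000.0 to 35780.0 CPM in its outer and 21810.0 to 28170.0 CPM in its inner layer. Sox10, the gene whose reporter guided the cuts, was higher in trigeminal than in olfactory nerve (1.35 ± 0.21, adjusted p 0.000114) and lower in olfactory nerve than in outer ONL (-2.29 ± 0.20, adjusted p 4.59e-07). All 5 skeletal muscle genes were higher in trigeminal nerve than in olfactory nerve, with sums of 135 to 211 CPM against 2.60 to 5.57 CPM. Of 6 macrophage genes, 6 were higher in olfactory nerve than in outer ONL and 1 was lower in trigeminal than in olfactory nerve. Of 5 endothelial genes, 3 were higher in olfactory nerve than in outer ONL and 0 differed between the nerves at the adjusted threshold. All 5 genes of olfactory neurons and epithelium were lower in trigeminal than in olfactory nerve, and all 5 genes of olfactory bulb neurons were higher in inner than in outer ONL. The part of these tissues in the members' levels was not tested.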

How the data were processed

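Gene counts of 31 libraries were analysed as the authors deposited them. Per the labels and the study's methods, RNA from laser-microdissected tissue was amplified (SMART-seq), sequenced in pairs, aligned to mm10 with TopHat2 2.1.0 and counted with HTSeq. The strand setting is not given in the sources used here. Genes passing filterByExpr were tested with edgeR 4.0.16 (R 4.3.3), with TMM scaling, quasi-likelihood F tests and Benjamini-Hochberg adjustment, at a threshold of 0.05. E16.5 comparisons used 1 fit of 15 libraries and stage comparisons 1 fit of all 31. The fits were tested on simulated counts. DESeq2 1.42.0, other scalings, filters and groupings and left-out libraries were alternatives. 1 row without a gene name was left out.

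Libraries of 3512627 to 36705535 counts put the floor of 3 counts at 0.0794 to 0.83 CPM. Exon lengths come from GENCODE M21, upstream windows from RefSeq (GRCm38.p6). Same-numbered E16.5 olfactory nerve and outer ONL libraries deviated together across genes (correlations of 0.145 to 0.299 in all 4 pairs, numbers from the labels). Libraries of different numbers had correlations of -0.259 to 0.252. A fit with the replicate number as a block was an alternative, and the main tests have no such term. Per the study's methods E16.5 regions share embryos and trigeminal pieces came from the sections of the others. Labels tie no number to an embryo, so the main E16.5 tests have no embryo term. Where samples of a group are pieces, p-values measure the spread between pieces.

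All 33 members are named. A fold change is given where a member was called, or was not called at a log2 change of 2 or more. Values of every library are given where a member so named reached a mean of 20 CPM in a group. Among the other lists, up to 3 called genes with the largest mean were to be named. All osteoblast genes called between the nerves were named, beyond that number. Sox10, Ocstamp, Oscar, Calcr, Dcstamp, Atp6v0d2, Sox5 and Scrg1 were named after their values were seen. The members and all lists were chosen with earlier results of these data known.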

Additional observations from a re-analysis of the deposited data

Results flagged for a closer look

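Dixon's criterion, on the distance of a library to its nearest neighbour, was applied to 65 sets of a gene and a group. Groups held 4 to 7 libraries, and 7 of the sets passed. The criterion passes about 1 in 20 independent sets by chance. These sets share libraries, so the 7 cannot be set against that rate. The library labelled E13.5 olfactory nerve 7 stood above the other 6 of E13.5 nerve for Col2a1 (369 CPM), Col9a1 (96.9 CPM) and Col9a3 (156 CPM), all collagens of cartilage. Outer ONL 1 stood below the other 3 outer ONL libraries for Matn1 (1.46 CPM) and Sparc (2090.0 CPM). Ctsk was high in outer ONL 3 (132.5 CPM) against 72.2 to 80.7 CPM in the others. Sparc was high in the E11.5 nerve library labelled E13.5 ONL 4 (753 CPM). The cause of these values was not tested.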

How the results depend on the processing

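The counts of members called kept within 1.5 times under most alternatives. Exceptions were as follows. Between the nerves, 5 were higher in a fit of all 31 libraries by label. For trigeminal nerve against outer ONL, 5 were lower with no filter and 2 to 5 with a library left out. For olfactory nerve against outer ONL, 11 were higher in the fit of 31 by label, and 2 were lower by DESeq2, 3 with no filter, 0 in both fits of 31 and 1 to 2 with a library left out. By label, the rise from E11.5 to E13.5 had 7 higher and 0 lower, with 2 to 4 lower with a library left out. For E13.5 nerve against ONL, 2 were lower by DESeq2, with the 2 groups alone and by label, and 0 to 3 with a library left out. By label 1 was lower in E16.5 outer ONL than in E13.5 ONL.

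Directions of called members turned by label for Spp1 (-1.46), Acp5 (0.39) and Col2a1 (1.16) from E11.5 to E13.5, for Spp1 (1.84), Col2a1 (-1.40) and Col9a2 (-0.39) between E13.5 nerve and ONL, and for Col10a1 (-0.24) in ONL to E16.5. Members not called with the regrouped libraries but called the other way by label were Acp5 (-2.66) and Col9a3 (1.10) between E13.5 nerve and ONL, and Acp5 (-2.85) in ONL to E16.5. Between olfactory nerve and outer ONL, values with a library left out ran from -8.61 to 0.92 for Ibsp and from -1.74 to 3.85 for Tnfsf11. The cause was not tested.

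For olfactory nerve against outer ONL, the counts with the replicate block are given beside that comparison. For the other E16.5 comparisons, whose regions share embryos per the study's methods but whose labels do not tie a number to an embryo, same-numbered libraries did not all deviate together (correlations of -0.0776 to 0.199 for inner and outer ONL, -0.174 to 0.071 for the nerves and -0.153 to 0.138 for trigeminal nerve and outer ONL). With the block, the counts there were 9 higher and 12 lower between the nerves, 14 and 2 for trigeminal nerve against outer ONL, and 0 and 17 for inner against outer ONL. Levels under the floor, 0.0794 to 0.83 CPM by library, were not detectable at these depths.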
